A study of Mus musculus with 12 samples.

Results

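The comparison described here is that of a high-fat diet (HFD) with normal chow (NCD) in the white fat around the gonads of wild-type (WT) mice. Its members are the read-count columns labelled WT HFD 1 to 3 and WT NCD 1 to 3, which are 6 of the 12 libraries of the series, and all 32238 genes of the table were considered. WT HFD mice had no knockout and ate HFD for 12 weeks from the age of 8 weeks, and WT NCD mice ate NCD over the same weeks. The other 6 libraries come from mice with a macrophage-specific Bnip3 knockout (MKO), 3 on HFD and 3 on NCD, and are used below only beside the WT values. Sex, strain, the composition of the diets, the hour of collection and the driver of the MKO deletion are not given in the sources used here.

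Gonadal fat stores triglyceride in adipocytes, and between them lie macrophages, fibroblasts, vessels and nerves. On a high-fat diet adipocytes enlarge, and macrophages gather around dying adipocytes, take up lipid and digest it in lysosomes. Fibroblasts lay down collagen, and adipocytes secrete more leptin. In males this depot is attached to the epididymis, the duct that stores sperm.

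Library totals were 52.9 to 56.5 M counts in WT HFD and 54.4 to 72.7 M in WT NCD. The share of genes in the table that read 0 was 28.9 to 38.3% in WT HFD and 15.6 to 24.1% in WT NCD. Levels are CPM, the counts of a gene scaled by library size with TMM factors, n = 3 libraries a group. Changes are log2 fold changes of WT HFD over WT NCD, each with a standard error (SE). The adjusted p is from edgeR's quasi-likelihood test on the 6 WT libraries with Benjamini-Hochberg adjustment over 19183 genes, with a threshold of 0.05. Fabp4, the fatty acid carrier of adipocytes, marked the tissue in all 6 libraries at 32190.0, 28100.0 and 34400.0 TPM in WT HFD and 21650.0, 33720.0 and 26910.0 TPM in WT NCD, in the authors' deposited TPM (transcript levels corrected for length). Bnip3, a mitophagy receptor of the outer mitochondrial membrane, read 438, 376 and 429 CPM in WT HFD and 418, 609 and 513 CPM in WT NCD and did not pass the test (log2 fold change -0.31, SE 0.17, adjusted p = 0.218).

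A large part of the transcriptome differed between the diets. Of 19183 genes tested, 2583 (13.5%) were higher and 2639 (13.8%) lower in WT HFD, together 27.2%, and the median log2 fold change of all tested genes was -0.10. The groups did not overlap in 48.6% of the genes, whether called or not. These percentages are the background against which the count of any gene list below is to be read. Changes of at least 2-fold numbered 1542 upward and 1807 downward, and changes of at least 8-fold 248 upward and 819 downward. Single libraries carry part of these counts: without WT HFD replicate 1 they were 1235 higher and 915 lower, and without WT HFD replicate 2 they were 1454 higher and 1080 lower. Without WT HFD replicate 3 the lower genes numbered 1544. Beside the lists below, counts without 1 library, in a fit of all 12 libraries or with DESeq2 are given where they moved by over 1.5 times, those with DESeq2 over every member in the table. In all 6 fits that leave out 1 WT library each, 1174 of the higher and 784 of the lower genes passed. Many genes named below were chosen because their groups did not overlap and they passed in all 6 of these fits. For them, remarks on overlap or on these fits describe that choice and are no further result.

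Some of the largest falls were those of transcripts known from another organ, the epididymis. Crisp1, a sperm-binding protein made by the epididymis (chr17:40293758-40319207), read 0, 0 and 0.0373 CPM in WT HFD and 4564, 4380.2 and 1977 CPM in WT NCD. Serpina1f, an epididymal serpin, read 0, 0 and 0 CPM in WT HFD and 1469.5, 1060.0 and 799.5 CPM in WT NCD, and was at least 58800-fold lower in WT HFD when 3 counts are placed in that group as a whole. Spink8, a Kazal-type protease inhibitor, read 0, 0 and 0 CPM in WT HFD and 723, 691 and 999 CPM in WT NCD and was at least 42600-fold lower on the same terms. Each of these 3 genes was present in every WT NCD library and nearly or wholly absent from WT HFD. The 25 epididymis markers in the table summed to 0.397, 0 and 0.913 CPM in WT HFD and 6790.0, 8444 and 9583 CPM in WT NCD. In MKO NCD, which was also on chow, the sum was 20.73, 0 and 2.79 CPM on a scale set over all 12 libraries, against 6380, 7874 and 8860 CPM in WT NCD on that scale.

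Such genes are kept apart from the diet effect below. A gene was set apart when its lowest WT NCD level was at least 1 CPM and at least 4 times its highest level in the MKO libraries other than MKO NCD replicate 2, or when it is an epididymis marker. This took 305 genes, of which 292 were tested and 281 were lower in WT HFD. Their share of all counts was 0.0313 to 0.0423% in WT HFD and 1.74 to 3.66% in WT NCD. WT NCD replicate 1 nearly lacks some epididymal genes that replicates 2 and 3 hold: Lcn5, a lipocalin of the epididymis, read 0, 0 and 0 CPM in WT HFD and 1.5, 731 and 1983 CPM in WT NCD. Adam7, a sperm-bound membrane protein, read 0, 0 and 0 CPM in WT HFD and 2.69, 503 and 1346 CPM in WT NCD. Lcn5 did not pass without WT HFD replicate 1, 2 or 3 or WT NCD replicate 2 or 3 (adjusted p = 0.0728 to 0.106), and Adam7 did not pass without WT HFD replicate 1, 2 or 3 or WT NCD replicate 2 or 3 (adjusted p = 0.0626 to 0.0946). A wider rule with the mean of WT NCD in place of its lowest library was therefore added after these values were seen. It took 978 genes, of which 801 were tested and 600 were lower. No gene was higher under either rule with edgeR, at an unadjusted p under 0.05 as well, and the count was 0 with DESeq2 and limma-voom too. Both rules choose genes mainly for high WT NCD levels, and the tests use the same libraries. The direction was thus largely set by the choice and is no separate result. Outside the wider rule 2039 genes were lower, 1207 of them by at least 2-fold and 317 by at least 8-fold. Of those 2039, 192 had a WT NCD mean under 1 CPM, where the CPM limit of the rules keeps them in, and 131 had no count in any WT HFD library.

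**Figure D1:**
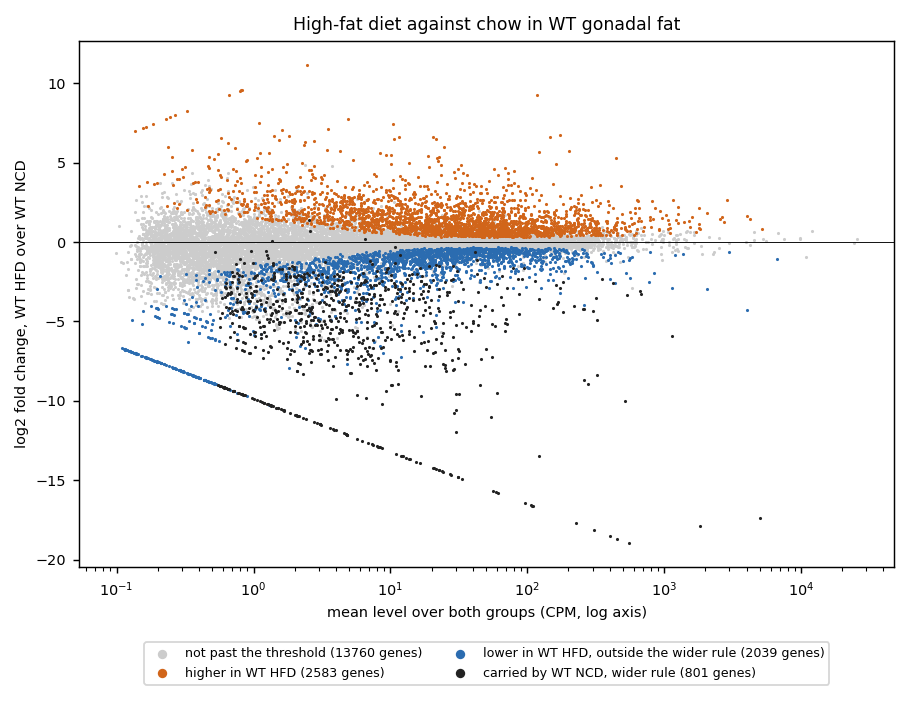
Log2 fold change of WT HFD over WT NCD against the mean level in CPM (log axis) for the 19183 genes tested, with 2583 higher genes in orange, 2039 lower genes outside the wider rule in blue, 801 tested genes of that rule in black and the rest in grey. The black points, chosen mainly for high WT NCD levels, lie below 0 almost throughout. The straight diagonal at the bottom holds genes with no count in WT HFD. Their fitted fold change depends on the prior count and is no measured size.

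Muscle and epithelial transcripts went with the WT NCD libraries as well. Cnn1, a calponin of contractile smooth muscle, read 0.492, 0.65 and 2.14 CPM in WT HFD and 1423, 229 and 4.49 CPM in WT NCD. Tagln, an actin-binding protein of the same cells, read 19.6, 29.2 and 37.9 CPM in WT HFD and 1373, 316 and 36.1 CPM in WT NCD. WT NCD replicate 1 stood far above the rest, and WT NCD replicate 3 lay within the range of WT HFD for Tagln. Cnn1 did not pass without WT HFD replicate 1, 2 or 3 (adjusted p = 0.0724 to 0.109), and Tagln did not pass without WT HFD replicate 1, 2 or 3 or WT NCD replicate 1 or 2 (adjusted p = 0.0615 to 0.147). Summed over 13 smooth muscle and pericyte markers the level was 1207, 1049 and 1487 CPM in WT HFD and 16940.0, 2818 and 1317 CPM in WT NCD. The list had 3 lower members, all in the wider rule, and that count was 0 without WT HFD replicate 1, 2 or 3, 1 without WT NCD replicate 2, 6 without WT NCD replicate 3, 5 in the fit of all 12 libraries and 6 with DESeq2. Krt18, a keratin of simple epithelia, read 1.74, 2.52 and 6.09 CPM in WT HFD and 101, 63.9 and 93.3 CPM in WT NCD (log2 fold change -4.64, SE 0.52, adjusted p = 0.00262), with no overlap between the groups. Its partner Krt8 fell in the same way (log2 fold change -4.29, SE 0.64, adjusted p = 0.00555). With Krt19 and Krt14 they are the 4 lower members of 13 mesothelial markers and keratins, all 4 in the wider rule. That lower count was 2 without WT HFD replicate 1. The mesothelial genes of that list, Msln (0.34, adjusted p = 0.665) and Wt1 (0.05, adjusted p = 0.946) among them, did not pass. Of 10 tested skeletal muscle markers 1 was higher and 2 lower: their sum was 27.1, 27.6 and 24.2 CPM in WT HFD and 457, 81.2 and 14.1 CPM in WT NCD, and the higher count was 0 without WT HFD replicate 1, 2 or 3 and 2 with DESeq2, and the lower count was 0 without WT HFD replicate 1, 2 or 3 or WT NCD replicate 1 or 2, 4 without WT NCD replicate 3 and 1 in the fit of all 12 libraries. In the lists that follow, falls of the wider rule are named or counted as such. The part of the other organ in the remaining falls was not tested.

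Outside the genes set apart, the largest rise was that of Tph2, tryptophan hydroxylase, which makes the first step of serotonin synthesis and is known as the neuronal form (chr10:115078641-115185022). It read 256, 251 and 194 CPM in WT HFD and 0.35, 0.293 and 0.524 CPM in WT NCD (log2 fold change 9.24, SE 0.28, adjusted p = 0.000237). The lowest WT HFD library was far above every WT NCD library. Slc5a7, the choline transporter of cholinergic nerve endings, read 278, 331 and 256 CPM in WT HFD and 0.286, 1.33 and 7.4 CPM in WT NCD (log2 fold change 6.59, SE 1.14, adjusted p = 0.00871), again without overlap, although WT NCD replicate 3 was well above the other chow libraries. Ubd, a ubiquitin-like modifier induced by inflammatory cytokines, read 420.1, 360.2 and 249 CPM in WT HFD and 2.16, 4.27 and 3.19 CPM in WT NCD (log2 fold change 6.74, SE 0.37, adjusted p = 0.000899). Gpr50, an orphan receptor related to the melatonin receptors, read 37.9, 62 and 46.7 CPM in WT HFD and 0.541, 0.657 and 1.12 CPM in WT NCD (log2 fold change 5.99, SE 0.36, adjusted p = 0.0011). In all 4 every WT HFD library was above every WT NCD library.

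The other large rises are a mixed group. Otop1, a proton channel, read 25, 21 and 16.2 CPM in WT HFD and 0.0318, 0 and 0.349 CPM in WT NCD. Trdn, a protein of muscle calcium release units, read 48.5, 34.2 and 39.9 CPM in WT HFD and 0.0636, 0.936 and 0.209 CPM in WT NCD. Lipf, the gastric lipase, read 21.9, 21.5 and 19.8 CPM in WT HFD and 0, 0.182 and 0.524 CPM in WT NCD. In each of the 3 the chow libraries stood below 1 CPM and the WT HFD libraries far above it. Secreted factors of the TGF-beta family were among them: Mstn, myostatin, the brake on muscle growth, read 8.55, 6.06 and 6.28 CPM in WT HFD and 0.0477, 0 and 0.105 CPM in WT NCD. Gdf3, a ligand made by fat macrophages in mice, read 7.07, 8.38 and 5.01 CPM in WT HFD and 0.0477, 0.265 and 0.0349 CPM in WT NCD. Their log2 fold changes were 7.10, adjusted p = 0.00358, and 5.82, adjusted p = 0.00472. Itgad, the alpha-D integrin of macrophages, read 51.8, 48.4 and 28.5 CPM in WT HFD and 0.445, 0.573 and 0.384 CPM in WT NCD (log2 fold change 6.51, SE 0.33, adjusted p = 0.000899). Tm4sf19, a tetraspanin-like membrane protein, averaged 23 CPM in WT HFD and 0.223 CPM in WT NCD. Serpinb9b (6.33), Elovl3 (6.08), Acoxl (5.76) and Art2a (7.47), on the log2 scale, complete the 15 largest rises; of these, Art2a and Serpinb9b belong to families of close copies, between which reads may be split. Passing every leave-one-out fit, without overlap between the groups, was a condition of choice for all 15.

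**Figure D2:**
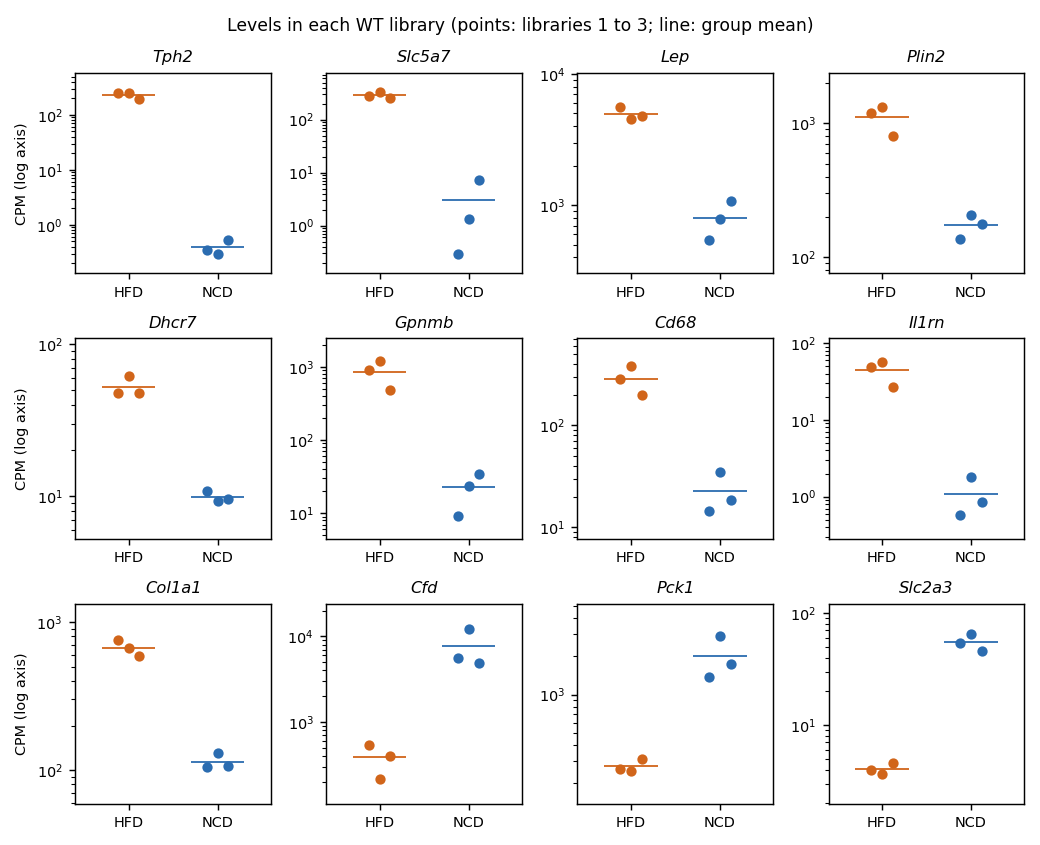
Level in CPM (log axis) of 12 genes in each WT library, WT HFD left and WT NCD right, with a line at each group mean. Tph2, Slc5a7, Lep, Plin2, Dhcr7, Gpnmb, Cd68, Il1rn and Col1a1 are higher, and Cfd, Pck1 and Slc2a3 lower, in every WT HFD library than in any WT NCD library.

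Other genes of serotonin handling were called in both directions, and the median log2 fold change of the list was -0.855. Htr2b, a serotonin receptor of fibroblasts and macrophages, read 3.52, 4.26 and 2.07 CPM in WT HFD and 0.223, 0.0978 and 0.14 CPM in WT NCD (log2 fold change 4.40, SE 0.54, adjusted p = 0.00316). Of the enzymes that break serotonin down, Maoa rose (117, 129 and 107 CPM in WT HFD and 39.1, 49 and 52.5 CPM in WT NCD, log2 fold change 1.32, adjusted p = 0.00242) and Maob fell (41.8, 35.1 and 52.4 CPM in WT HFD and 112, 104 and 93.4 CPM in WT NCD, log2 fold change -1.26, adjusted p = 0.00399). Tph1, the peripheral hydroxylase, belongs to the wider rule and did not pass (-2.12, adjusted p = 0.154). Ddc, which completes serotonin synthesis, had a log2 fold change of -1.80, adjusted p = 0.329. Of 12 tested members of the list 4 were higher and 1 lower, and DESeq2 called 2 lower.

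Adipokines, the hormones of fat cells, moved in both directions. Lep, leptin (chr6:29060221-29073876), read 5619, 4568 and 4739 CPM in WT HFD and 545, 781 and 1073 CPM in WT NCD (log2 fold change 2.64, SE 0.28, adjusted p = 0.00228), and every WT HFD library exceeded every WT NCD library several times. Cfd, adipsin, the complement protease of adipocytes, read 537, 215 and 401 CPM in WT HFD and 5654, 12362 and 4891 CPM in WT NCD (log2 fold change -4.31, SE 0.53, adjusted p = 0.00319). Agt, angiotensinogen, read 46.6, 25.2 and 30.1 CPM in WT HFD and 190.5, 424 and 317 CPM in WT NCD (log2 fold change -3.19, SE 0.37, adjusted p = 0.00288). Angptl8, an inhibitor of lipoprotein lipase complexes that responds to feeding, read 13.6, 29.1 and 15.4 CPM in WT HFD and 2.72, 2.93 and 2.92 CPM in WT NCD (log2 fold change 2.76, SE 0.32, adjusted p = 0.00294). None of these 4 overlapped between groups. Retn, resistin, had a mean of 213 CPM in WT HFD and 839 CPM in WT NCD (log2 fold change -1.97, SE 0.42, adjusted p = 0.0167) and did not pass without WT HFD replicate 1 (adjusted p = 0.0823). Adipoq, adiponectin, read 2025, 1292 and 2148 CPM in WT HFD and 1846, 4058 and 2454 CPM in WT NCD, with overlap and no call (adjusted p = 0.218). Fgf21, a fasting hormone also made in fat, rose (log2 fold change 2.99, SE 0.57, adjusted p = 0.012). Of 21 adipokines, 8 were higher and 4 lower; the higher count was 4 without WT HFD replicate 1, 5 without WT HFD replicate 2 or 3 and 5 in the fit of all 12 libraries.

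Transcription factors of the adipocyte were lower more often than higher, with 2 higher and 8 lower of 22. Ebf2, which opens chromatin at adipocyte genes, read 26, 21.6 and 17.6 CPM in WT HFD and 40.1, 60.2 and 53.6 CPM in WT NCD (log2 fold change -1.24, SE 0.21, adjusted p = 0.00782). Zfp423, which holds white adipocytes in their state, read 53.4, 55.1 and 56.1 CPM in WT HFD and 28.3, 27.4 and 29.1 CPM in WT NCD (log2 fold change 0.96, SE 0.09, adjusted p = 0.00196). For both genes the groups did not overlap. Pparg, the master factor of adipogenesis, read 162, 130.4 and 200.2 CPM in WT HFD and 196, 214 and 209.6 CPM in WT NCD and did not pass (adjusted p = 0.19). The other falls were Cebpa, Klf15, Srebf1, Mlxipl, Ebf1, Klf5 and Klf9, of which none passed in all 6 leave-one-out fits, and the lower count was 2 without WT HFD replicate 1, 3 without WT HFD replicate 2 and 4 without WT HFD replicate 3. Higher members numbered 1 without WT HFD replicate 1, 2 or 3 or WT NCD replicate 1.

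Genes of fatty acid synthesis were called in both directions. Me1, malic enzyme, which makes NADPH, read 1291, 1195 and 1051 CPM in WT HFD and 389, 315 and 483 CPM in WT NCD (log2 fold change 1.57, SE 0.20, adjusted p = 0.00331). Slc25a1, the carrier that exports citrate from mitochondria, read 451, 418 and 416 CPM in WT HFD and 226, 203 and 179 CPM in WT NCD (log2 fold change 1.08, SE 0.13, adjusted p = 0.00318). Pgd, an NADPH-making enzyme of the pentose phosphate pathway, read 533, 562 and 515 CPM in WT HFD and 219, 215 and 260.3 CPM in WT NCD (log2 fold change 1.21, SE 0.13, adjusted p = 0.00234). In each the lowest WT HFD library was above the highest WT NCD library. Acaca, acetyl-CoA carboxylase, the enzyme that commits carbon to fat, read 222, 274 and 241 CPM in WT HFD and 509, 508 and 573 CPM in WT NCD (log2 fold change -1.11, SE 0.13, adjusted p = 0.00314). Fasn, fatty acid synthase, read 2309.9, 2549 and 2254 CPM in WT HFD and 2346, 1027 and 2318 CPM in WT NCD and did not pass (adjusted p = 0.484), with WT NCD replicate 2 apart from the other chow libraries. Scd1, the main desaturase, read 20402, 18814 and 32665 CPM in WT HFD and 18550.0, 25739 and 30015 CPM in WT NCD with overlap (adjusted p = 0.92). Of the desaturases of polyunsaturated fatty acids, Fads1 fell (log2 fold change -2.37, SE 0.38, adjusted p = 0.00688). Fads2 read 15, 14.6 and 20.3 CPM in WT HFD and 598, 321 and 135 CPM in WT NCD and is among the genes set apart. In all, 10 were higher and 6 lower of 24; the higher count was 5 without WT HFD replicate 1, and the lower count was 3 without WT HFD replicate 1 or 2.

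Gpd1 and Pck1 are among the genes that supply the glycerol backbone of triglyceride. Pck1, the rate-limiting enzyme of glyceroneogenesis, read 261, 249 and 313 CPM in WT HFD and 1386, 2891 and 1747 CPM in WT NCD (log2 fold change -2.87, SE 0.30, adjusted p = 0.00229), and Gpd1, glycerol-3-phosphate dehydrogenase of the cytosol, rose (log2 fold change 1.68, SE 0.22, adjusted p = 0.00394). Gpd2, its mitochondrial counterpart, read 28.7, 24.2 and 28.4 CPM in WT HFD and 66.9, 72.8 and 68.8 CPM in WT NCD (log2 fold change -1.36, SE 0.11, adjusted p = 0.00154). The 2 dehydrogenases thus moved in opposite directions. Of the acyltransferases, Gpam fell (186, 205 and 182 CPM in WT HFD and 332, 389 and 377 CPM in WT NCD, log2 fold change -0.94, adjusted p = 0.00372) and Agpat4 rose (14.3, 15.1 and 14 CPM in WT HFD and 6.55, 6.91 and 6.81 CPM in WT NCD, log2 fold change 1.10, adjusted p = 0.00343). Mogat1 and Mogat2, which acylate monoglyceride, had log2 fold changes of -2.37, adjusted p = 0.00581 and 2.57, adjusted p = 0.00606. The list had 7 higher and 6 lower of 20, and the higher count was 4 without WT HFD replicate 1.

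Coats of the lipid droplet were called in both directions. Plin2, the coat of droplets in cells other than mature adipocytes, read 1196, 1315 and 803 CPM in WT HFD and 136, 207 and 176 CPM in WT NCD (log2 fold change 2.68, SE 0.26, adjusted p = 0.00185). Clstn3, whose adipocyte isoform sits on the droplet in mice, read 49.5, 43.7 and 34.5 CPM in WT HFD and 8.88, 8.81 and 9.9 CPM in WT NCD (log2 fold change 2.21, SE 0.17, adjusted p = 0.00126). Both were higher in every WT HFD library. Plin1, the coat of mature adipocytes, stood at 615, 639 and 689.8 TPM in WT HFD and 913, 1165 and 1088 TPM in WT NCD in the authors' deposited TPM; its log2 fold change was -0.66, adjusted p = 0.0304, in 2 of 6 leave-one-out fits, not without WT HFD replicate 2. Of 14 tested coats 4 were higher and 2 lower, the higher count was 2 without WT HFD replicate 3, and the lower count was 0 without WT HFD replicate 1, 2 or 3 and 1 without WT NCD replicate 3. Of 18 genes of fatty acid uptake 6 were higher and 1, Acsl4, was lower; the higher count was 3 without WT HFD replicate 1 and 10 with DESeq2, and the lower count was 0 without WT HFD replicate 1, 2 or 3 or WT NCD replicate 2. Fabp5, the fatty acid carrier shared with macrophages, read 429, 424 and 348 CPM in WT HFD and 59.1, 70.6 and 87 CPM in WT NCD (log2 fold change 2.47, SE 0.18, adjusted p = 0.00124). Vldlr, which takes up triglyceride-rich lipoproteins, read 342, 249.9 and 237 CPM in WT HFD and 76.2, 104 and 112 CPM in WT NCD (log2 fold change 1.50, SE 0.21, adjusted p = 0.0047).

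Genes that release stored fat were mostly uncalled. Adrb3, the beta-3 adrenergic receptor of adipocytes, read 103, 58.3 and 213 CPM in WT HFD and 911, 614 and 724 CPM in WT NCD (log2 fold change -2.58, SE 0.48, adjusted p = 0.0107) and did not pass without WT HFD replicate 1 (adjusted p = 0.0631). Lipe, hormone-sensitive lipase, read 1035, 839.8 and 1171 CPM in WT HFD and 1449.7, 2098 and 1648 CPM in WT NCD (log2 fold change -0.77, SE 0.20, adjusted p = 0.0339) and did not pass without WT HFD replicate 1, 2 or 3 or WT NCD replicate 2 or 3 (adjusted p = 0.0613 to 0.128). Of 23 genes 1, Prkaca, was higher and 4 were lower; the higher count was 0 without WT HFD replicate 1, 2 or 3 and 3 with DESeq2, and the lower count was 0 without WT HFD replicate 1, 1 without WT HFD replicate 2 or WT NCD replicate 2 or 3 and 2 without WT HFD replicate 3. Of 24 genes of insulin signalling 5 were lower. Irs1, the docking protein of the insulin receptor, read 36.6, 26.5 and 29.7 CPM in WT HFD and 72.4, 71.4 and 72 CPM in WT NCD (log2 fold change -1.22, SE 0.14, adjusted p = 0.00273). Slc2a4, the insulin-responsive glucose transporter, read 88.4, 51.2 and 80.8 CPM in WT HFD and 196, 198 and 160.3 CPM in WT NCD (log2 fold change -1.33, SE 0.22, adjusted p = 0.00749). Neither overlapped between groups. The lower members numbered 2 without WT HFD replicate 1 and 3 without WT HFD replicate 2 or 3. Of 16 genes of the growth hormone and IGF axis 1, Igfbp5, was higher and 3 (Igf2, Igf1r and Cish) were lower; the higher count was 0 without WT HFD replicate 1, 2 or 3, 2 without WT NCD replicate 1 or 2, 2 in the fit of all 12 libraries and 4 with DESeq2, and the lower count was 0 without WT HFD replicate 1 or 2, 1 without WT HFD replicate 3 and 1 in the fit of all 12 libraries.

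Thermogenic genes rose in part, from low levels. Ucp1, the uncoupler of brown fat, read 2.25, 1.53 and 0.54 CPM in WT HFD and 0.0318, 0 and 0.0349 CPM in WT NCD (log2 fold change 5.93, SE 1.05, adjusted p = 0.00948) and did not pass without WT HFD replicate 1 (adjusted p = 0.0553). Dio2, which activates thyroid hormone, read 8.24, 4.97 and 4.64 CPM in WT HFD and 0.302, 0.21 and 0.646 CPM in WT NCD (log2 fold change 3.95, SE 0.55, adjusted p = 0.00447). Elovl3, an elongase of brown fat, read 3.54, 7.42 and 2.78 CPM in WT HFD and 0, 0.14 and 0.0524 CPM in WT NCD (log2 fold change 6.08, SE 1.06, adjusted p = 0.00907). Gatm, which begins creatine synthesis, read 24.1, 28.1 and 16.6 CPM in WT HFD and 6.16, 8.83 and 8.85 CPM in WT NCD (log2 fold change 1.53, SE 0.25, adjusted p = 0.00721). Each was higher in every WT HFD library, and Ucp1 and Elovl3 averaged under 5 CPM there. Of 18 genes 6 were higher. Mest, a gene that follows fat mass expansion in mice, read 1568, 1303 and 1332 CPM in WT HFD and 62.7, 379 and 246 CPM in WT NCD (log2 fold change 2.61, SE 0.60, adjusted p = 0.0213); it did not pass without WT HFD replicate 1, 2 or 3 or WT NCD replicate 3 (adjusted p = 0.0529 to 0.0813). It is 1 of 2 higher members among 4 expansion genes, the other being Sfrp5, and that count was 0 without WT HFD replicate 1, 2 or 3, 1 without WT NCD replicate 2 and 1 in the fit of all 12 libraries.

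Cholesterol synthesis rose nearly as a pathway. Of 24 genes 16 were higher and 1 was lower, with a median log2 fold change of 0.84, and the higher count was 15 or 16 in every leave-one-out fit. Hmgcs1, which makes HMG-CoA for the mevalonate pathway, read 728, 691 and 650.4 CPM in WT HFD and 112, 164 and 188 CPM in WT NCD (log2 fold change 2.15, SE 0.21, adjusted p = 0.00194). Lss, which folds squalene epoxide into lanosterol, read 91.4, 112 and 81.8 CPM in WT HFD and 27.6, 29.7 and 30.3 CPM in WT NCD (log2 fold change 1.70, SE 0.14, adjusted p = 0.00154). Dhcr7, which makes cholesterol from its 7-dehydro precursor, read 47.9, 61.8 and 47.8 CPM in WT HFD and 10.8, 9.25 and 9.53 CPM in WT NCD (log2 fold change 2.42, SE 0.15, adjusted p = 0.0011). All 3 were higher in each WT HFD library than in any WT NCD library. Mvd, Idi1, Cyp51, Nsdhl and Sc5d, further enzymes of the route, had log2 fold changes of 1.39, 0.84, 0.84, 1.38 and 1.18. The exception was Fdft1, squalene synthase, the first enzyme committed to sterols, with a mean of 34.1 CPM in WT HFD and 101 CPM in WT NCD (log2 fold change -1.57, SE 0.17, adjusted p = 0.00243). Sqle, squalene epoxidase (-0.17, adjusted p = 0.452), and Srebf2, the transcription factor of the pathway (-0.48, adjusted p = 0.0975), did not pass. Members lower in WT HFD were 3 without WT NCD replicate 3 and 2 with DESeq2.

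Some genes that free, esterify and export cholesterol were higher as well. Lipa, the lysosomal acid lipase that frees cholesterol from esters, read 457, 577 and 286 CPM in WT HFD and 43.3, 66.3 and 61 CPM in WT NCD (log2 fold change 2.95, SE 0.30, adjusted p = 0.00218). Soat1, which esterifies it again, read 93.9, 113 and 60 CPM in WT HFD and 15.1, 21.1 and 21.6 CPM in WT NCD (log2 fold change 2.21, SE 0.27, adjusted p = 0.00315). Abcg1, an exporter to high-density lipoprotein, read 105, 128 and 90.5 CPM in WT HFD and 26.2, 27.6 and 28.4 CPM in WT NCD (log2 fold change 1.98, SE 0.15, adjusted p = 0.00124), whereas Abca1, which loads apolipoprotein A-I, did not pass (0.01, adjusted p = 0.99). Of 17 genes of efflux and storage 8 were higher and 2, Nr1h2 and Cyp27a1, were lower. The count of higher members became 5 without WT HFD replicate 1, and that of lower members 0 without WT HFD replicate 1, 2 or 3 or WT NCD replicate 2 and 1 without WT NCD replicate 1 or 3. Of 27 genes of ceramide and sphingomyelin 7 were higher and 2, Sgms2 and Sphk1, were lower. Of these 2 falls, 1 lay outside the wider rule. Cerk, ceramide kinase, read 93.8, 122 and 80.7 CPM in WT HFD and 24.6, 27.5 and 22.9 CPM in WT NCD (log2 fold change 1.98, SE 0.18, adjusted p = 0.00177), and Degs1, the last desaturase of ceramide synthesis, rose too (log2 fold change 1.20, SE 0.16, adjusted p = 0.00378). Lower members numbered 0 without WT HFD replicate 1 or 2, 1 without WT HFD replicate 3 or WT NCD replicate 2 and 0 in the fit of all 12 libraries.

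Macrophage transcripts were higher in WT HFD across nearly the whole list. The 22 identity markers summed to 4744, 6485 and 4098 CPM in WT HFD and 685, 1605 and 952 CPM in WT NCD, and 19 of the 22 were higher, with a median log2 fold change of 2.17. Cd68, a lysosomal protein of macrophages, read 286, 379.5 and 198 CPM in WT HFD and 14.6, 35.1 and 18.5 CPM in WT NCD (log2 fold change 3.66, SE 0.42, adjusted p = 0.00271). Mpeg1, a pore former of phagosomes, read 531, 712 and 375 CPM in WT HFD and 30.9, 66.8 and 46.7 CPM in WT NCD (log2 fold change 3.48, SE 0.37, adjusted p = 0.00228). In bulk tissue, fewer cells of a type and less RNA per cell cannot be told apart, nor can more of either. Cd14 (0.42, adjusted p = 0.458), Mertk (-0.18, adjusted p = 0.578) and Aif1 (0.54, adjusted p = 0.271) did not pass. Trem2, the lipid sensor of macrophages, read 102, 161 and 63.8 CPM in WT HFD and 2.39, 8.31 and 2.57 CPM in WT NCD (log2 fold change 4.62, SE 0.64, adjusted p = 0.00454). Gpnmb, a lysosomal glycoprotein of lipid-laden cells, read 914, 1207 and 479 CPM in WT HFD and 9.2, 23.8 and 34.5 CPM in WT NCD (log2 fold change 5.27, SE 0.62, adjusted p = 0.003). Of 19 genes of lipid-associated macrophages, 15 were higher (median 2.95), and Cd63, Cd36, Lpl and Acp5 were not called. Their rise goes with that of the identity sum, and how much of it that sum carries was not tested.

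Genes of resident and alternatively activated macrophages rose in 8 of 19 (median 0.77). Stab1, a scavenger receptor of tissue macrophages, read 147, 206 and 158 CPM in WT HFD and 61.7, 65.4 and 66.8 CPM in WT NCD (log2 fold change 1.40, SE 0.15, adjusted p = 0.00234). Mrc1, the mannose receptor, read 256, 368 and 262 CPM in WT HFD and 55.5, 113 and 91.9 CPM in WT NCD (log2 fold change 1.77, SE 0.29, adjusted p = 0.00721). Chil3, a chitinase-like protein, read 3.82, 2.77 and 6.13 CPM in WT HFD and 0.461, 0.698 and 0.209 CPM in WT NCD (log2 fold change 3.20, SE 0.57, adjusted p = 0.00962). Each was higher in every WT HFD library, and the count of the list was 3 without WT HFD replicate 1 or 2, 4 without WT HFD replicate 3 and 5 without WT NCD replicate 3. Timd4, a marker of long-lived resident macrophages (0.09, adjusted p = 0.902), and Retnla, a product of alternative activation (0.06, adjusted p = 0.93), did not pass.

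Surface receptors of myeloid cells rose in most members. Of 9 genes of Fc gamma receptors and their kinases 8 were higher. Fcgr4, an activating receptor for IgG, read 7.64, 12.4 and 6.2 CPM in WT HFD and 1.08, 1.93 and 1.19 CPM in WT NCD (log2 fold change 2.64, SE 0.39, adjusted p = 0.00532). Lyn, a kinase below these receptors, read 83.9, 100.1 and 81.9 CPM in WT HFD and 32.2, 32.3 and 31.9 CPM in WT NCD (log2 fold change 1.46, SE 0.11, adjusted p = 0.00133). The exception was Fcgrt, the neonatal Fc receptor (-0.33, adjusted p = 0.324). Of 17 Toll-like receptors and their partners 12 were higher (median 1.62). Tlr13, which recognises bacterial ribosomal RNA in mice, read 54.4, 81.6 and 32.2 CPM in WT HFD and 1.69, 4.39 and 1.66 CPM in WT NCD (log2 fold change 4.44, SE 0.55, adjusted p = 0.00334). Tlr1, a partner of Tlr2, read 19.9, 34.1 and 20 CPM in WT HFD and 3.39, 4.43 and 3.28 CPM in WT NCD (log2 fold change 2.73, SE 0.28, adjusted p = 0.00209). Cd180, a relative of Tlr4, read 50.3, 84.3 and 32.4 CPM in WT HFD and 2.35, 4.43 and 3.63 CPM in WT NCD (log2 fold change 4.0, SE 0.43, adjusted p = 0.00235). Tlr5 (-0.27, adjusted p = 0.348), Tlr12 (-1.13, adjusted p = 0.227) and the adaptor Myd88 (0.05, adjusted p = 0.848) did not pass. Of 19 C-type lectins and Ms4a genes, 13 were higher. Clec7a, the receptor for fungal beta-glucan known as dectin-1, read 79.2, 132 and 62.9 CPM in WT HFD and 5.06, 12.4 and 9.64 CPM in WT NCD (log2 fold change 3.34, SE 0.42, adjusted p = 0.00346). Ms4a7, a membrane protein of macrophages, read 34.2, 54.3 and 28.7 CPM in WT HFD and 3.1, 6.76 and 4.26 CPM in WT NCD (log2 fold change 3.05, SE 0.37, adjusted p = 0.00324). Clec4a1, Clec4a2 and Clec4a3 are close copies, between which the authors' counting could split reads.

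The lysosome rose in its acid pump and in its enzymes. Atp6v0d2, a pump subunit of osteoclasts and macrophages, read 247, 335 and 132 CPM in WT HFD and 1.69, 5.63 and 6.56 CPM in WT NCD (log2 fold change 5.68, SE 0.64, adjusted p = 0.00266). Atp6v1b2, a widely used pump subunit, read 353, 389.9 and 304 CPM in WT HFD and 104, 145 and 117 CPM in WT NCD (log2 fold change 1.52, SE 0.17, adjusted p = 0.00263). Gusb, beta-glucuronidase, read 219, 265 and 178 CPM in WT HFD and 44.2, 57.5 and 67.4 CPM in WT NCD (log2 fold change 1.97, SE 0.21, adjusted p = 0.00238). Of 38 lysosomal genes 23 were higher, and the count was 12 without WT HFD replicate 1 and 13 without WT HFD replicate 2. Of 13 cathepsins, the proteases of the lysosome, 8 were higher. Ctss, which trims the class II invariant chain, read 590.1, 816 and 478 CPM in WT HFD and 33.1, 76.3 and 48.4 CPM in WT NCD (log2 fold change 3.58, SE 0.37, adjusted p = 0.00222). Ctsk, a collagen-cutting member, read 136, 178 and 104 CPM in WT HFD and 13.5, 20.2 and 15.3 CPM in WT NCD (log2 fold change 3.09, SE 0.25, adjusted p = 0.00154). Ctsd, an aspartic protease, read 3393, 3636 and 2529 CPM in WT HFD and 815, 1022 and 889.5 CPM in WT NCD (log2 fold change 1.81, SE 0.20, adjusted p = 0.00237). Ctsc, Ctse, Ctsf, Ctso and Ctsw were not called. The letters CACGTG, which read the same on both strands and are the core of the motif that lysosomal factors of the Tfeb family bind, were in the promoters of 10 of 29 lysosomal genes in the RefSeq table (34.5%), against 8.09% of all genes with a promoter there. Among the 18 of those genes that rose, 5 held it, and any role of Tfeb family factors in that rise was not tested. Tfe3, one of those factors, rose (0.67, adjusted p = 0.00418), and so did Tfeb (0.59, adjusted p = 0.0303, in 1 of 6 leave-one-out fits, not without WT HFD replicate 2) and Mitf (0.93, adjusted p = 0.0213, in 3 of 6 leave-one-out fits, not without WT HFD replicate 1).

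Presentation of antigen by MHC class II rose in 11 of 14 genes. Ciita, the master regulator of class II genes, read 37.8, 49.7 and 31.2 CPM in WT HFD and 9.35, 13.5 and 11.2 CPM in WT NCD (log2 fold change 1.80, SE 0.22, adjusted p = 0.0033). H2-DMb1, which loads peptides, read 139.7, 152 and 106 CPM in WT HFD and 13.3, 29.7 and 20.2 CPM in WT NCD (log2 fold change 2.66, SE 0.31, adjusted p = 0.00294). Ifi30, a thiol reductase of the loading compartment, read 101, 124 and 92.4 CPM in WT HFD and 23.5, 33.9 and 27.3 CPM in WT NCD (log2 fold change 1.91, SE 0.18, adjusted p = 0.00185). Each was higher in all 3 WT HFD libraries. The class II chain H2-Ab1 did not pass (1.14, adjusted p = 0.0524), and the count of the list was 4 without WT HFD replicate 1, 5 without WT HFD replicate 2, 6 without WT HFD replicate 3 and 7 without WT NCD replicate 3. Class I presentation rose in 5 of 16: Tapbp, which holds class I at the peptide transporter, read 355, 318 and 365 CPM in WT HFD and 236, 207 and 223 CPM in WT NCD (log2 fold change 0.64, SE 0.12, adjusted p = 0.0111) and did not pass without WT HFD replicate 1 (adjusted p = 0.0564). That count was 0 without WT HFD replicate 1, 1 without WT HFD replicate 2 or 3, 3 without WT NCD replicate 3 and 8 without WT NCD replicate 2.

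Complement genes rose in 14 of 26 and fell in 2, C2 and the adipokine Cfd. C3ar1, the receptor for C3a on macrophages, read 165, 216 and 94.8 CPM in WT HFD and 7.92, 19.9 and 14 CPM in WT NCD (log2 fold change 3.50, SE 0.44, adjusted p = 0.00341). Itgb2, the beta chain of complement receptor 3, read 220.3, 273 and 137 CPM in WT HFD and 12.1, 34 and 17.9 CPM in WT NCD (log2 fold change 3.30, SE 0.45, adjusted p = 0.00434). C2, a protease of the classical pathway, read 57.2, 58.4 and 58.8 CPM in WT HFD and 155, 349.8 and 205 CPM in WT NCD (log2 fold change -2.03, SE 0.29, adjusted p = 0.00516). Cell-surface shields against complement rose as well: Cd55 by 1.13, adjusted p = 0.00588 and Cd59a by 1.17, adjusted p = 0.00772 on the log2 scale. Those higher numbered 6 without WT HFD replicate 2 and 7 without WT HFD replicate 1.

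Among chemokines and their receptors 15 of 31 were higher. Ccl2, which draws monocytes through Ccr2, read 20.8, 23 and 17.9 CPM in WT HFD and 1.96, 3.42 and 2.01 CPM in WT NCD (log2 fold change 3.06, SE 0.28, adjusted p = 0.00177), and its neighbour Ccl7 read 17.3, 21.4 and 18.4 CPM in WT HFD and 2.1, 3.69 and 2.3 CPM in WT NCD (log2 fold change 2.82, SE 0.26, adjusted p = 0.00183). Ccr2 itself read 141, 141 and 123 CPM in WT HFD and 21.3, 48.1 and 39.9 CPM in WT NCD (log2 fold change 1.89, SE 0.29, adjusted p = 0.00603). None of these overlapped between groups. The count was 6 without WT HFD replicate 2, 7 without WT HFD replicate 1, 9 without WT HFD replicate 3 and 7 in the fit of all 12 libraries. Of 27 genes of cytokines and the inflammasome 12 were higher and 1, Ptgs2, which is in the wider rule, was lower. Il1rn, the antagonist of interleukin-1, read 49, 57.3 and 26.5 CPM in WT HFD and 0.573, 1.8 and 0.855 CPM in WT NCD (log2 fold change 5.35, SE 0.54, adjusted p = 0.00207). Casp1, the inflammasome protease, read 43.4, 44.2 and 39.6 CPM in WT HFD and 6.92, 9.23 and 8.43 CPM in WT NCD (log2 fold change 2.37, SE 0.15, adjusted p = 0.0011). Il1b, interleukin-1 beta itself, was low and overlapping at 0.378, 0.708 and 0.335 CPM in WT HFD and 0.414, 1.03 and 0.367 CPM in WT NCD (adjusted p = 0.706). Tnf, tumour necrosis factor, read 2.08, 1.43 and 2.31 CPM in WT HFD and 0.557, 0.293 and 0.436 CPM in WT NCD (log2 fold change 2.17, SE 0.46, adjusted p = 0.016) and did not pass without WT HFD replicate 1 or 3 (adjusted p = 0.0669 to 0.0778). Members higher in WT HFD were 5 without WT HFD replicate 1, 7 without WT HFD replicate 2 and 7 in the fit of all 12 libraries, and those lower 0 without WT HFD replicate 1, 2 or 3. Genes induced by interferon rose in 13 of 26: Rsad2, an antiviral enzyme, read 24.7, 28.1 and 24.9 CPM in WT HFD and 12.9, 8.95 and 11.9 CPM in WT NCD (log2 fold change 1.21, SE 0.17, adjusted p = 0.00477). Oas1a, a sensor of double-stranded RNA, read 14, 15.1 and 12.2 CPM in WT HFD and 2.91, 5.69 and 3.28 CPM in WT NCD (log2 fold change 1.79, SE 0.29, adjusted p = 0.0072). Irf7 (-0.25, adjusted p = 0.253) and Isg15 (0.30, adjusted p = 0.415) did not pass, and the count was 5 without WT HFD replicate 1, 7 without WT HFD replicate 3 and 8 without WT HFD replicate 2.

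Markers of lymphocytes were called higher at a share near the background. Of 25 tested T and NK cell markers 4 were higher and 1, Gata3, which is in the wider rule, was lower. Their sums were 134, 163 and 105 CPM in WT HFD and 161, 112 and 41.5 CPM in WT NCD, which overlap. Cd3e, a chain of the T cell receptor complex, did not pass (0.18, adjusted p = 0.804). Il7r, the receptor for interleukin-7, which myeloid cells also carry, read 76.3, 84.7 and 28.9 CPM in WT HFD and 1.32, 3.05 and 2.09 CPM in WT NCD (log2 fold change 4.87, SE 0.53, adjusted p = 0.00242). Members called higher became 1 without WT HFD replicate 2, 2 without WT HFD replicate 1 or 3 or WT NCD replicate 2 and 2 in the fit of all 12 libraries. Of 13 B cell markers 2, Cd22 and Fcer2a, were higher, and the sums were 25.2, 87.3 and 129.8 CPM in WT HFD and 28.7, 38.1 and 28.7 CPM in WT NCD. Cd22, an inhibitory lectin, read 9, 13.6 and 9.78 CPM in WT HFD and 1.05, 2.17 and 1.29 CPM in WT NCD (log2 fold change 2.84, SE 0.36, adjusted p = 0.0034). The B cell count was 1 without WT HFD replicate 2 or 3 or WT NCD replicate 1, 2 or 3 and 0 in the fit of all 12 libraries. No mast cell marker of 10 was called by edgeR; 2 had an unadjusted p under 0.05, both lower, and DESeq2 called 1 and limma-voom 0. Of 12 dendritic cell markers 4 were higher; Irf8, a factor of dendritic cells and macrophages, read 56, 67.8 and 54.4 CPM in WT HFD and 7.11, 13.5 and 12 CPM in WT NCD (log2 fold change 2.45, SE 0.26, adjusted p = 0.00224), and the count was 1 without WT HFD replicate 1 or 3, 2 without WT HFD replicate 2 and 2 in the fit of all 12 libraries.

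Markers of granulocytes were called in part. S100a8, a calcium-binding protein of neutrophils, read 23, 19.8 and 15.9 CPM in WT HFD and 0.764, 1.08 and 2.09 CPM in WT NCD (log2 fold change 3.90, SE 0.41, adjusted p = 0.00229). Csf3r, the receptor for granulocyte colony-stimulating factor, read 9.25, 8.24 and 10.5 CPM in WT HFD and 2, 3.13 and 2.69 CPM in WT NCD (log2 fold change 1.84, SE 0.25, adjusted p = 0.00433). Of 12 tested monocyte and granulocyte markers 6 were higher and 1, Plac8, which is among the genes set apart, was lower. Higher members numbered 3 without WT HFD replicate 2 or 3 and 2 in the fit of all 12 libraries. Red blood cell markers summed to 1148, 1186 and 1020.0 CPM in WT HFD and 804, 1953 and 477 CPM in WT NCD, with overlap, and had no call by edgeR among 7, none with an unadjusted p under 0.05, and none by DESeq2 or limma-voom. Over all lists, where a direction is not mentioned edgeR called no member in it; of the tested members at most 2 then had an unadjusted p under 0.05, and DESeq2 called at most 2 of them and limma-voom 0. In the fits that leave out 1 WT library, 2 nerve markers were lower without WT NCD replicate 2. There, 1 member was called in such a direction among chemokines (lower) and red blood cell markers (higher) without WT NCD replicate 2. Likewise 1 was called among lysosomal genes and cathepsins (lower) and smooth muscle markers (higher) without WT NCD replicate 1, and among mast cell markers (lower) without WT NCD replicate 3.

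Collagens were higher in 17 of 28 and lower in 2, Col4a3 and Col7a1, of which Col7a1 is in the wider rule. Col1a1, the main chain of fibrillar type I collagen, read 753, 672 and 585 CPM in WT HFD and 105, 129.9 and 107 CPM in WT NCD (log2 fold change 2.56, SE 0.16, adjusted p = 0.0011). Col6a2, a chain of the beaded-filament collagen around adipocytes, read 1286, 1025 and 984 CPM in WT HFD and 174, 177 and 206 CPM in WT NCD (log2 fold change 2.57, SE 0.17, adjusted p = 0.0011). Col16a1, a fibril-associated collagen, read 83.6, 111 and 101 CPM in WT HFD and 17.4, 15 and 18.9 CPM in WT NCD (log2 fold change 2.53, SE 0.15, adjusted p = 0.0011). All 3 were higher in each WT HFD library, without overlap. The basement membrane chains Col4a1 (1.34, adjusted p = 0.00379) and Col4a2 (1.52, adjusted p = 0.00362) rose, while Col4a3 fell (-1.33, adjusted p = 0.0382, in 2 of 6 leave-one-out fits, not without WT HFD replicate 1). The lower members numbered 0 without WT HFD replicate 1, 1 without WT HFD replicate 2 or 3, 0 in the fit of all 12 libraries and 4 with DESeq2.

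The machinery that folds, cuts and crosslinks collagen rose in most of its members: 29 of 40 were higher and 2, Mmp9 and Timp4, lower (median 1.17). Serpinh1, the collagen chaperone Hsp47, read 858, 826 and 969 CPM in WT HFD and 240.4, 259 and 222 CPM in WT NCD (log2 fold change 1.88, SE 0.14, adjusted p = 0.00118). Plod1, which hydroxylates lysine for crosslinks, read 166, 155 and 147 CPM in WT HFD and 59.5, 60.2 and 65.1 CPM in WT NCD (log2 fold change 1.34, SE 0.10, adjusted p = 0.00124). Loxl2, which forms them, read 80.6, 87.5 and 124 CPM in WT HFD and 17.9, 23.7 and 20.4 CPM in WT NCD (log2 fold change 2.24, SE 0.20, adjusted p = 0.00177). Bmp1, which cuts the procollagen tail, read 105, 106 and 95.8 CPM in WT HFD and 52.3, 49.3 and 48.2 CPM in WT NCD (log2 fold change 1.04, SE 0.10, adjusted p = 0.00178). None of the 4 overlapped. Mmp12, the elastase of macrophages (5.71, adjusted p = 0.00317), Mmp3, stromelysin (5.50, adjusted p = 0.00184), and the inhibitor Timp1 (4.14, adjusted p = 0.00314) had the larger log2 fold changes of the list. Mmp9, a gelatinase (-2.51, adjusted p = 0.018, in 3 of 6 leave-one-out fits, not without WT HFD replicate 2), and Timp4, an inhibitor of fat (-1.80, adjusted p = 0.0129, in 5 of 6 leave-one-out fits, not without WT HFD replicate 1), were lower, a count that was 0 without WT HFD replicate 1 and 1 without WT HFD replicate 2 or 3.

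Elastic fibres and the proteins between fibres followed. Eln, elastin, read 119.7, 103 and 121 CPM in WT HFD and 46.5, 46.8 and 43.4 CPM in WT NCD (log2 fold change 1.33, SE 0.11, adjusted p = 0.00152). Postn, periostin, read 473, 469.6 and 351 CPM in WT HFD and 101, 71.5 and 71.4 CPM in WT NCD (log2 fold change 2.41, SE 0.21, adjusted p = 0.00176). Fbln2, a fibulin, read 251, 297 and 237 CPM in WT HFD and 52.1, 77 and 64.5 CPM in WT NCD (log2 fold change 2.02, SE 0.18, adjusted p = 0.00177). Of 37 such genes 22 were higher, and the count was 13 without WT HFD replicate 1. Among 10 small leucine-rich proteoglycans 5 were higher and 1 lower: Bgn, biglycan, read 604, 709 and 516 CPM in WT HFD and 198, 149.7 and 143 CPM in WT NCD (log2 fold change 1.90, SE 0.19, adjusted p = 0.00212). Podn, podocan, read 45.4, 51.8 and 40.7 CPM in WT HFD and 187, 202 and 158 CPM in WT NCD (log2 fold change -1.99, SE 0.15, adjusted p = 0.00124). Dcn, decorin, the abundant member, did not pass (0.27, adjusted p = 0.604). Markers of fibroblasts and progenitors split, with 9 higher and 2 (F3 and Gsn) lower of 17. Fap, a protease of activated fibroblasts, read 25.9, 23.5 and 21.1 CPM in WT HFD and 5.54, 5.99 and 7.79 CPM in WT NCD (log2 fold change 1.87, SE 0.18, adjusted p = 0.00193). Pdgfrb, the receptor of mural cells and fibroblasts, read 89.9, 115 and 129.8 CPM in WT HFD and 52.2, 34.7 and 53.4 CPM in WT NCD (log2 fold change 1.25, SE 0.21, adjusted p = 0.00829). Their summed level, led by abundant members, was 6636, 5094 and 5876 CPM in WT HFD and 7175, 13630.0 and 9202 CPM in WT NCD and was lower in every WT HFD library. Members higher in WT HFD were 5 without WT HFD replicate 1 or 2, and those lower 0 without WT HFD replicate 1 or 2 and 1 without WT HFD replicate 3 or WT NCD replicate 2 or 3.

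**Figure D3:**
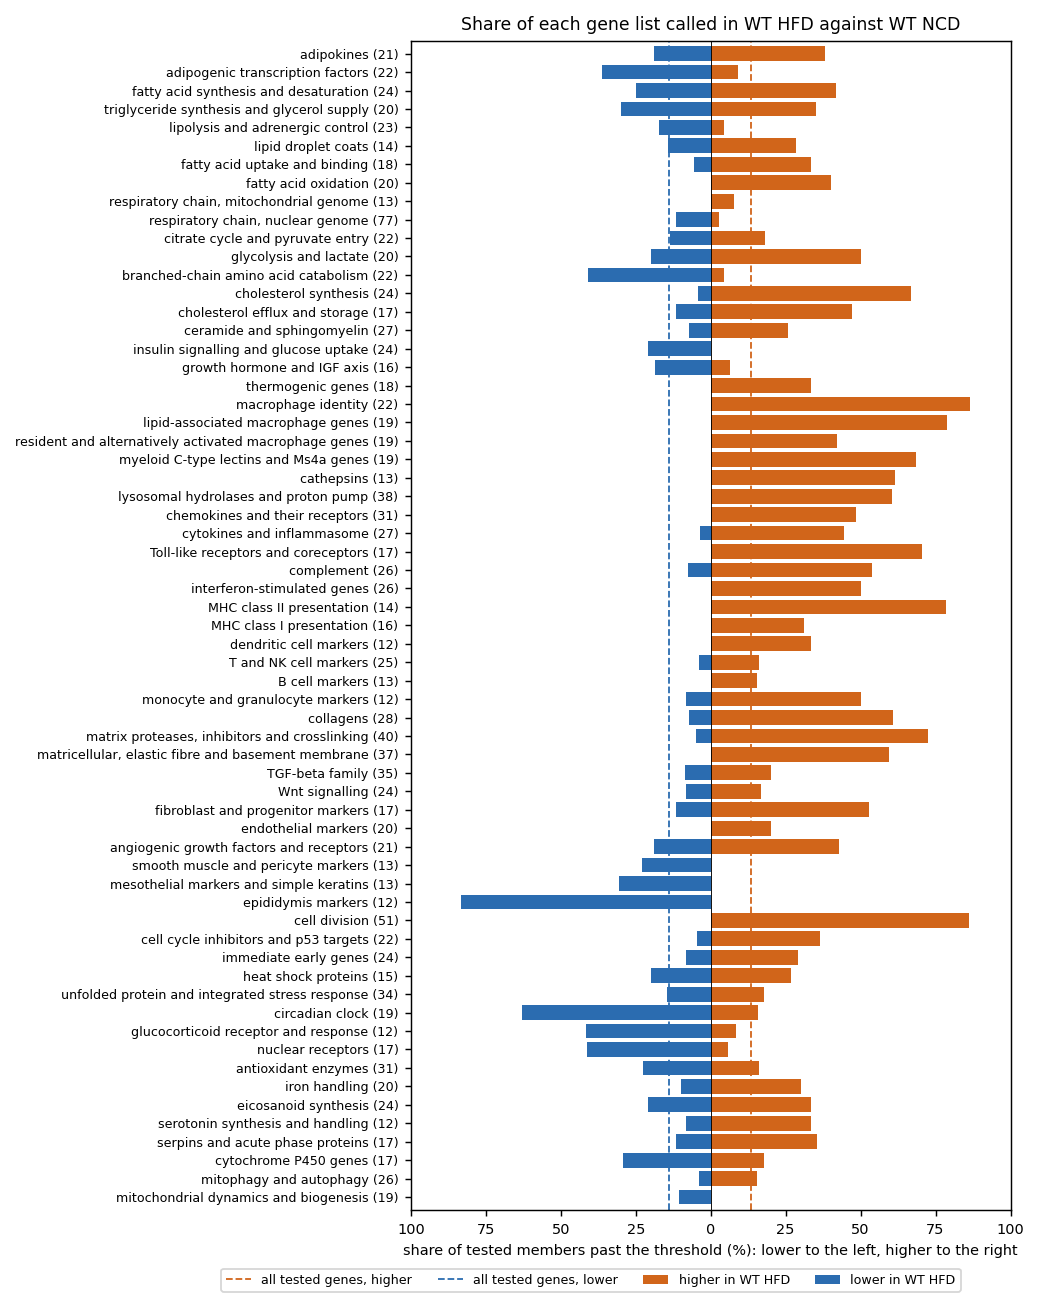
Share of tested members called higher (right) and lower (left) in WT HFD for the 63 gene lists with at least 12 tested members, with dashed lines at the background of 13.5% higher and 13.8% lower over all genes. Macrophage, cell division, matrix and cholesterol synthesis lists reach far to the right, and the circadian clock and epididymis lists to the left.

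Signals to the matrix were mixed. Of 35 tested genes of the TGF-beta family 7 were higher and 3 lower. Tgfb1, the founding ligand, read 68.4, 83.7 and 69.1 CPM in WT HFD and 28.5, 25.7 and 26.2 CPM in WT NCD (log2 fold change 1.46, SE 0.12, adjusted p = 0.00157). Fstl1, a follistatin-like secreted protein, read 444, 466 and 298 CPM in WT HFD and 102, 148 and 115 CPM in WT NCD (log2 fold change 1.73, SE 0.23, adjusted p = 0.00386). Bmp7, a ligand of brown fat and kidney, read 1.38, 1.22 and 0.857 CPM in WT HFD and 7.11, 6.33 and 4.21 CPM in WT NCD (log2 fold change -2.35, SE 0.35, adjusted p = 0.00541), and Bmpr1b, one of its receptors, is in the wider rule. With DESeq2 5 of the family were lower. Of 24 Wnt genes 4 were higher and 2, Axin2 and Tcf7l2, were lower. Sfrp4, a secreted Wnt antagonist, read 23.5, 19.6 and 10.2 CPM in WT HFD and 1.51, 3.84 and 1.62 CPM in WT NCD (log2 fold change 2.93, SE 0.49, adjusted p = 0.00779). The count of higher members became 1 without WT HFD replicate 2 or 3, 2 without WT HFD replicate 1 or WT NCD replicate 2 and 0 in the fit of all 12 libraries, and that of lower members 0 without WT HFD replicate 2, 1 without WT HFD replicate 1 or WT NCD replicate 2, 1 in the fit of all 12 libraries and 5 with DESeq2.

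Endothelial markers rose in part, with a median log2 fold change of 0.67 over the list. Of 20 endothelial markers 4 were higher; Nos3, the nitric oxide synthase of endothelium, read 65.6, 56.5 and 66.6 CPM in WT HFD and 37.4, 28.2 and 33 CPM in WT NCD (log2 fold change 0.94, SE 0.14, adjusted p = 0.00557), while Pecam1, an adhesion molecule of all endothelium, did not pass (0.86, adjusted p = 0.133). The count was 1 without WT HFD replicate 1, 2 or 3, 2 without WT NCD replicate 2 or 3 and 8 with DESeq2. Of 21 angiogenic factors and receptors 9 were higher and 4 lower. Fgf1, which adipocytes release on a fat diet in mice, read 199, 209 and 175 CPM in WT HFD and 50.3, 76.9 and 70.9 CPM in WT NCD (log2 fold change 1.56, SE 0.18, adjusted p = 0.00285). Vegfd, a lymphatic growth factor, read 42.5, 44.6 and 68.9 CPM in WT HFD and 24.5, 25.9 and 27.8 CPM in WT NCD (log2 fold change 1.00, SE 0.20, adjusted p = 0.0148). Angpt1, the ligand that steadies vessels, read 11.7, 6 and 11 CPM in WT HFD and 31.9, 54.3 and 31.1 CPM in WT NCD (log2 fold change -2.03, SE 0.34, adjusted p = 0.00765). Fgf2, a broad growth factor, read 29.5, 32.5 and 39.6 CPM in WT HFD and 85.2, 64.1 and 113 CPM in WT NCD (log2 fold change -1.37, SE 0.23, adjusted p = 0.00768). Vegfa, the main vessel growth factor, read 139, 156 and 207 CPM in WT HFD and 254, 214 and 295 CPM in WT NCD and did not pass (adjusted p = 0.0608). Higher members numbered 2 without WT HFD replicate 1, 3 without WT HFD replicate 2, 4 without WT HFD replicate 3 and 5 without WT NCD replicate 2, and lower members 2 without WT HFD replicate 1 or 2. Nerve and Schwann cell markers had no call by edgeR among 8 tested; 2 had an unadjusted p under 0.05, both lower, and DESeq2 called 2 of them and 5 of all those in the table lower, and limma-voom 0.

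Genes of cell division rose together. Of 51 genes 44 were higher (median 1.85), between 32 and 44 in the leave-one-out fits and 14 in the fit of all 12 libraries. Mki67, the proliferation antigen Ki-67, read 75.5, 105 and 64.7 CPM in WT HFD and 6.44, 10.7 and 11.2 CPM in WT NCD (log2 fold change 3.12, SE 0.29, adjusted p = 0.00177). Ccna2, cyclin A, read 25.5, 28.4 and 19.3 CPM in WT HFD and 3.52, 3.73 and 3.46 CPM in WT NCD (log2 fold change 2.77, SE 0.19, adjusted p = 0.0011). Tpx2, a spindle assembly factor, read 20.2, 21.1 and 17 CPM in WT HFD and 2.55, 3.24 and 3.58 CPM in WT NCD (log2 fold change 2.64, SE 0.20, adjusted p = 0.00124). Birc5, survivin, read 10.7, 13.3 and 11 CPM in WT HFD and 1.7, 2.05 and 1.92 CPM in WT NCD (log2 fold change 2.63, SE 0.21, adjusted p = 0.0014). In all 4 every WT HFD library exceeded every WT NCD library at least several-fold. The uncalled members were Aurka, Kif2c, Mcm2, Mcm4, Mcm7, Gins2 and Cdc6. Division genes and the macrophage sum both rose between the same groups, and which cells divided was not tested. In MKO the median of HFD over NCD was 2.32 for cell division, with 5 higher members. For macrophage identity it was 0.35 there, with 0 higher members. These MKO values are from the fit of all 12 libraries, which includes MKO NCD replicate 2.

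Promoters of such genes are known to carry CCAAT boxes and a cell cycle element, TTTGAA. In 300-base windows from RefSeq (build GRCm38.p6, 250 bases before to 50 after each start, both strands searched), CCAAT was present in 34 of the 43 cell division genes found (79.1%), against 41.1% of all 27025 genes. TTTGAA was present in 23 of 43 (53.5%), against 20.2% of all genes. Of the 38 among them that rose, 31 held CCAAT and 20 TTTGAA. The 250 bases before the start of 3 genes that rose are shown, because each holds both motifs. The capitals mark CCAAT and TTTGAA on either strand, and each sequence is on the minus strand of its chromosome, 5′ to 3′, at chr10:69352913-69353162 for Cdk1, chr7:135716380-135716629 for Mki67 and chr11:99024190-99024439 for Top2a.
Cdk1: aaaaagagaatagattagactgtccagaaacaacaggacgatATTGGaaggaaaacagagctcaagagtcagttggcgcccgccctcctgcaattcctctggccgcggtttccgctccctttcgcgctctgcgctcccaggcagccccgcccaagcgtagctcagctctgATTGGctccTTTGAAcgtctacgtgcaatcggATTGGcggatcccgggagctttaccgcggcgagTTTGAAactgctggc
Mki67: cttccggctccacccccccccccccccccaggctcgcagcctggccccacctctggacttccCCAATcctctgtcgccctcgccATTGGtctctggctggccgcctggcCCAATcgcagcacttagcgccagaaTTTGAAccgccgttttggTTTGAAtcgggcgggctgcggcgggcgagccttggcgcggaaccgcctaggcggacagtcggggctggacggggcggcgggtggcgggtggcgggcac
Top2a: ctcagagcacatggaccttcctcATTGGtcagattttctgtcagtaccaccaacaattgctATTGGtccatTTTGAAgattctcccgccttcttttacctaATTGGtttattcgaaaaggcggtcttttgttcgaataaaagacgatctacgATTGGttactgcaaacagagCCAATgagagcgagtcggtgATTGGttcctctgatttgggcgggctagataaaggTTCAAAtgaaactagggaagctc
Cdk1, the mitotic kinase, rose with log2 fold change 2.66, SE 0.24, adjusted p = 0.00177, and Top2a, the topoisomerase that untangles chromosomes, with log2 fold change 2.69, SE 0.28, adjusted p = 0.00222. A match describes letters in a window and no bound factor.

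Brakes on the cycle rose beside the division genes, with 8 higher and 1, Cdkn1b, lower of 22. Cdkn1a, the p21 inhibitor, read 102, 111 and 81.7 CPM in WT HFD and 15.9, 15 and 19.4 CPM in WT NCD (log2 fold change 2.55, SE 0.17, adjusted p = 0.0011). Cdkn2b, the p15 inhibitor, read 13.1, 17 and 13.2 CPM in WT HFD and 6.14, 6.08 and 6.2 CPM in WT NCD (log2 fold change 1.23, SE 0.17, adjusted p = 0.0045). Ccng1, a target of p53, read 399.5, 342 and 270.0 CPM in WT HFD and 135, 163 and 161 CPM in WT NCD (log2 fold change 1.14, SE 0.18, adjusted p = 0.00606). The groups did not overlap for any of them. Cdkn2a, which encodes p16, did not pass (1.43, adjusted p = 0.154). Those higher numbered 5 without WT HFD replicate 1 or 2. Those lower were 0 without WT HFD replicate 1, 2 or 3 or WT NCD replicate 1 or 2, 0 in the fit of all 12 libraries and 2 with DESeq2.

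The circadian clock was the list with the largest share of lower members outside the genes set apart: 12 of 19 fell and 3 rose, with a median log2 fold change of -1.13. The clock is a loop in which Arntl and Clock drive Per, Cry and Nr1d, which in turn repress the drivers. Arntl and Clock also drive the output factors Dbp, Tef and Hlf. The driver and target arms swing largely in opposite phase over the day. Arntl, the driver Bmal1, read 13.4, 19.3 and 20.7 CPM in WT HFD and 4.04, 5.74 and 5.85 CPM in WT NCD (log2 fold change 1.77, SE 0.24, adjusted p = 0.00432). Nfil3, a repressor opposed to Dbp, read 8.7, 13.1 and 9.43 CPM in WT HFD and 1.91, 3.05 and 3.54 CPM in WT NCD (log2 fold change 1.88, SE 0.31, adjusted p = 0.00748). Per2, a repressor of the driver, read 11.5, 8.76 and 11.2 CPM in WT HFD and 37.8, 33.7 and 40.7 CPM in WT NCD (log2 fold change -1.83, SE 0.16, adjusted p = 0.0017). Nr1d1, the nuclear receptor Rev-erb alpha, read 79.7, 59 and 88.7 CPM in WT HFD and 216, 164 and 158 CPM in WT NCD (log2 fold change -1.24, SE 0.20, adjusted p = 0.00674). The outputs fell too: Dbp read 13.5, 8.24 and 15.5 CPM in WT HFD and 125, 95.6 and 57.8 CPM in WT NCD (log2 fold change -2.90, SE 0.36, adjusted p = 0.00329). Hlf read 4.71, 4.05 and 6.2 CPM in WT HFD and 53, 32.3 and 30.3 CPM in WT NCD (log2 fold change -2.95, SE 0.29, adjusted p = 0.00193). Tef read 95, 60.6 and 91.4 CPM in WT HFD and 265, 271 and 232 CPM in WT NCD (log2 fold change -1.64, SE 0.19, adjusted p = 0.003). In each of these 7 genes the groups did not overlap. Per1 (-1.41), Per3 (-2.19), Cry2 (-0.71), Nr1d2 (-1.13), Bhlhe41 (-0.75) and Ciart (-2.22) were also lower on the log2 scale. Npas2, Cry1, Rora and Bhlhe40 were not called.

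The lower count of clock genes was 10 to 13 in the leave-one-out fits, and the higher count was 1 in the fit of all 12 libraries. In MKO mice, which share no library with WT, 9 fell and 1 rose between HFD and NCD, against a background of 0.966% lower and 1.04% higher in the fit of all 12 libraries, and the median over the list was -1.08. There Dbp had a log2 fold change of -3.07, SE 0.35, adjusted p = 0.00334, Arntl of 3.04, SE 1.07, adjusted p = 0.189 and Hlf of -2.80, SE 0.42, adjusted p = 0.0118. Diet and hour of collection cannot be told apart, because the hour is not given for any library. Of the calls, Clock (0.46, adjusted p = 0.0379, in 1 of 6 leave-one-out fits, not without WT HFD replicate 1), Bhlhe41 (-0.75, adjusted p = 0.0235, in 1 of 6 leave-one-out fits, not without WT HFD replicate 2) and Ciart (-2.22, adjusted p = 0.0157, in 3 of 6 leave-one-out fits, not without WT HFD replicate 2) were lost without any of several libraries.

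**Figure D4:**
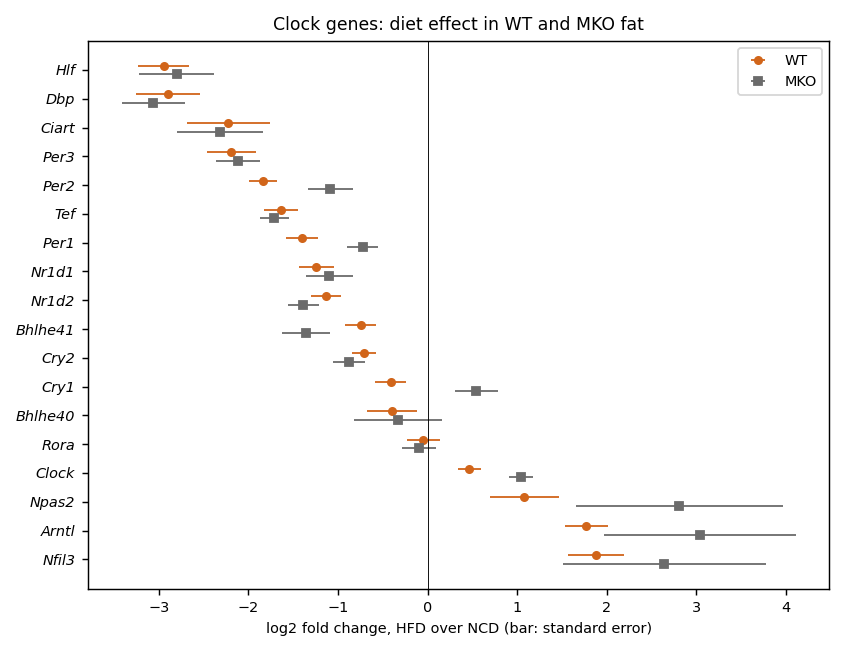
Log2 fold change of HFD over NCD, with bars of 1 SE, for 18 clock genes in WT mice (circles, fit of 6 libraries) and MKO mice (squares, fit of 12 libraries). Arntl, Nfil3 and Clock stand right of 0, and Dbp and Hlf furthest left, in both genotypes.

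Clock drivers bind the E-box CACGTG. In the same RefSeq windows it was present in 5 of the 16 clock genes found (31.2%), against 8.09% of all genes, and among the 10 of them that fell in 4, Per1, Tef, Bhlhe41 and Ciart. The 250 bases before the starts of Ciart, Per1 and Tef are shown because they hold it, in capitals, within genes that fell together: chr3:95882229-95882478 (minus strand) for Ciart, chr11:69098699-69098948 (plus strand, 1 of 2 starts) for Per1, and chr15:81802423-81802672 and chr15:81811164-81811413 (plus strand) for the 2 starts of Tef.
Ciart: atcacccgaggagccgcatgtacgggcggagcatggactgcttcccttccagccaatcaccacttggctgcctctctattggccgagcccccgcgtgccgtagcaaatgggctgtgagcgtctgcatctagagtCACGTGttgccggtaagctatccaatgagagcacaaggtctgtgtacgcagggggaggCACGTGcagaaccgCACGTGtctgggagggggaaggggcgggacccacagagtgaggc
Per1: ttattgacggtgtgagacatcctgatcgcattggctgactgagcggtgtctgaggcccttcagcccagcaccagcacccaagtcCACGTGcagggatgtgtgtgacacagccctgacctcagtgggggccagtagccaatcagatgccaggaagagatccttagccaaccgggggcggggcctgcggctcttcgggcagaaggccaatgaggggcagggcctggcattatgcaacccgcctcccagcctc
Tef, first start: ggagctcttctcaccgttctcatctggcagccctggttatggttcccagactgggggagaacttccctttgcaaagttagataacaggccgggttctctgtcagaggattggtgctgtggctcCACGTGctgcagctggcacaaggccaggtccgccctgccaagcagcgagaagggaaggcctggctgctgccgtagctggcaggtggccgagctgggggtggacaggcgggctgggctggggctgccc
Tef, second start: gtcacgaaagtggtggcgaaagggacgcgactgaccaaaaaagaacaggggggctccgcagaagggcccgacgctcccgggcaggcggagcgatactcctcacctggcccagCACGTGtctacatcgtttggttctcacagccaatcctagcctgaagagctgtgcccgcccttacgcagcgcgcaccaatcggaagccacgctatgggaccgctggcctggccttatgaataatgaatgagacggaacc
Ciart, a repressor of Clock and Arntl, holds the E-box 3 times in this stretch and the others once each. Per1, the partner of Per2, had a log2 fold change of -1.41, adjusted p = 0.00341.

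Targets of the glucocorticoid receptor, whose ligand also follows the day, fell in 5 of 12 and rose in 1. Fkbp5, a chaperone that dampens the receptor, read 34, 30.1 and 42.3 CPM in WT HFD and 114, 131 and 140.3 CPM in WT NCD (log2 fold change -1.85, SE 0.16, adjusted p = 0.00176). Errfi1, an inhibitor of the EGF receptor, read 30.3, 34.3 and 40.3 CPM in WT HFD and 74.4, 83.6 and 73.1 CPM in WT NCD (log2 fold change -1.14, SE 0.14, adjusted p = 0.00307). Both were lower in every WT HFD library. Pdk4, which rose, is described with the mitochondria. Hsd11b1, which regenerates the active hormone in fat, fell (-1.22, adjusted p = 0.0435, in 1 of 6 leave-one-out fits, not without WT HFD replicate 2), and Tsc22d3, another classical target, did not pass (0.06, adjusted p = 0.757). Members lower in WT HFD were 2 without WT HFD replicate 2 and 3 without WT HFD replicate 1. Of 17 nuclear receptors 1, Rara, was higher and 7 lower. Ppara, the receptor that drives fatty acid oxidation, read 12.6, 10.8 and 10.5 CPM in WT HFD and 25.4, 24.6 and 19.7 CPM in WT NCD (log2 fold change -1.04, SE 0.16, adjusted p = 0.00553). Members called higher became 0 without WT HFD replicate 2 or 3. Lower members numbered 3 without WT HFD replicate 1 or WT NCD replicate 2 and 4 without WT HFD replicate 2 or WT NCD replicate 1 or 3.

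Lists of mitochondrial fuel use were mostly near or below the background, apart from fatty acid oxidation. Pdk4, which blocks pyruvate entry, read 143, 166 and 101 CPM in WT HFD and 25.8, 40 and 28.4 CPM in WT NCD (log2 fold change 2.12, SE 0.25, adjusted p = 0.00285). Pdk2, a kinase of the same function, read 56.3, 44.7 and 48.2 CPM in WT HFD and 146, 184 and 130.1 CPM in WT NCD (log2 fold change -1.63, SE 0.17, adjusted p = 0.00214), so that the 2 kinases moved in opposite directions without overlap. Of 22 genes of the citrate cycle and pyruvate entry 4 were higher and 3 lower; the higher count was 2 without WT HFD replicate 1 or 2, and the lower count was 1 without WT HFD replicate 1 or 2. Fatty acid oxidation rose in 8 of 20: Acadl, the long-chain dehydrogenase, read 451, 358 and 376 CPM in WT HFD and 155, 217 and 182 CPM in WT NCD (log2 fold change 1.10, SE 0.17, adjusted p = 0.00615). Etfdh, which passes its electrons on, read 153, 131 and 130.2 CPM in WT HFD and 79, 88.6 and 87 CPM in WT NCD (log2 fold change 0.70, SE 0.11, adjusted p = 0.00686). The count was 2 without WT HFD replicate 1. Of 77 nuclear genes of the respiratory chain 2 were higher and 9 lower, and the lower count was 0 without WT HFD replicate 1 or 2 or WT NCD replicate 1 or 2, 1 without WT HFD replicate 3, 22 without WT NCD replicate 3, 5 in the fit of all 12 libraries and 17 with DESeq2, so that a single library decides it in either direction; the higher count was 1 without WT HFD replicate 1 or 2 or WT NCD replicate 1 or 3. Cycs, cytochrome c, read 255, 223 and 212 CPM in WT HFD and 133, 137 and 154 CPM in WT NCD (log2 fold change 0.70, SE 0.12, adjusted p = 0.00919), and the 13 genes of the mitochondrial genome had 1 call, ND2 (log2 fold change 0.81, SE 0.18, adjusted p = 0.02), a subunit of complex I, a count that was 0 without WT HFD replicate 1 or 2 or WT NCD replicate 3, 3 without WT NCD replicate 1 and 4 with DESeq2.

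Glycolysis rose in 10 of 20 and fell in 4. Pfkp, the platelet form of phosphofructokinase, read 117, 128 and 129.6 CPM in WT HFD and 46.5, 49.6 and 60.2 CPM in WT NCD (log2 fold change 1.26, SE 0.13, adjusted p = 0.00213). Tpi1, triosephosphate isomerase, read 816, 689 and 575 CPM in WT HFD and 267, 311 and 295 CPM in WT NCD (log2 fold change 1.25, SE 0.17, adjusted p = 0.00393). Ldha, which makes lactate, read 1003, 905 and 897 CPM in WT HFD and 484, 533 and 466 CPM in WT NCD (log2 fold change 0.92, SE 0.13, adjusted p = 0.0047). Pfkm, the muscle form of phosphofructokinase (-1.10, adjusted p = 0.0278, in 4 of 6 leave-one-out fits, not without WT HFD replicate 2), and Ldhb, the heart form of lactate dehydrogenase (-1.81, adjusted p = 0.017, in 4 of 6 leave-one-out fits, not without WT HFD replicate 1), fell. The higher members numbered 6 without WT HFD replicate 1 or 2. Those lower were 0 without WT HFD replicate 1 and 1 without WT HFD replicate 2. Breakdown of branched-chain amino acids fell in 9 of 22, with 1, Bcat1, the cytosolic aminotransferase, higher (1.55, adjusted p = 0.0109, in 5 of 6 leave-one-out fits, not without WT HFD replicate 1). Ivd, the leucine-pathway dehydrogenase, read 129, 82.9 and 132 CPM in WT HFD and 221, 305 and 262 CPM in WT NCD (log2 fold change -1.20, SE 0.22, adjusted p = 0.0104) without overlap. Members lower in WT HFD were 1 without WT HFD replicate 2 or 3, 2 without WT HFD replicate 1 and 3 without WT NCD replicate 2, and of the 9 Ivd alone passed in all 6 leave-one-out fits. The count of higher members became 0 without WT HFD replicate 1.

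Mitophagy and autophagy genes were near the background, with 4 higher and 1 lower of 26. Optn, a receptor that brings damaged mitochondria to the autophagosome, read 127, 147 and 139 CPM in WT HFD and 49, 49.4 and 46 CPM in WT NCD (log2 fold change 1.52, SE 0.10, adjusted p = 0.0011). Higher members numbered 2 without WT HFD replicate 1, and lower members 2 without WT NCD replicate 1, 0 in the fit of all 12 libraries and 2 with DESeq2. Of 19 genes of mitochondrial dynamics and biogenesis 2 were lower, Ppargc1b, a coactivator of biogenesis (log2 fold change -0.83, SE 0.15, adjusted p = 0.00986), and Twnk, the helicase of mitochondrial DNA (-0.72, adjusted p = 0.0121, in 4 of 6 leave-one-out fits, not without WT HFD replicate 1). That count was 1 without WT HFD replicate 1 or 2.

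Antioxidant enzymes were near the background, with 5 higher and 7 lower of 31 and a median of -0.15. Of the 7 falls, 6 lay outside the wider rule. Gpx3, the glutathione peroxidase secreted into plasma, read 176, 242 and 289.9 CPM in WT HFD and 925, 1517 and 1539.6 CPM in WT NCD (log2 fold change -2.49, SE 0.28, adjusted p = 0.00268). Sod3, the superoxide dismutase of the matrix, read 549, 486 and 568 CPM in WT HFD and 177, 239 and 233 CPM in WT NCD (log2 fold change 1.3, SE 0.16, adjusted p = 0.00327). Ucp2, an uncoupling protein of macrophages among other cells, read 631, 795 and 541 CPM in WT HFD and 116, 166 and 112 CPM in WT NCD (log2 fold change 2.32, SE 0.23, adjusted p = 0.00194). Those higher numbered 3 without WT HFD replicate 1 or 2. Those lower were 1 without WT HFD replicate 2, 2 without WT HFD replicate 1, 4 without WT HFD replicate 3 or WT NCD replicate 2 or 3 and 3 in the fit of all 12 libraries. Of 20 genes of iron handling 6 were higher and 2, Cp and Aco1, lower. Hmox1, which splits haem, read 153, 205 and 100.2 CPM in WT HFD and 18.9, 33.1 and 20.2 CPM in WT NCD (log2 fold change 2.67, SE 0.34, adjusted p = 0.00343). Blvra, which reduces its product biliverdin, read 70.9, 70.6 and 65 CPM in WT HFD and 23, 31 and 29.4 CPM in WT NCD (log2 fold change 1.31, SE 0.14, adjusted p = 0.00231). Slc11a1, the iron exporter of phagosomes, read 84.1, 104 and 55.7 CPM in WT HFD and 8.83, 19.3 and 11.4 CPM in WT NCD (log2 fold change 2.62, SE 0.36, adjusted p = 0.00439). None of the 3 overlapped. Ftl1, ferritin light chain, rose (1.26, adjusted p = 0.0116, in 4 of 6 leave-one-out fits, not without WT HFD replicate 1), and Fth1, the heavy chain, did not pass (0.15, adjusted p = 0.596). Members lower in WT HFD were 0 without WT HFD replicate 2 and 1 without WT HFD replicate 1 or 3.

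Enzymes and receptors of eicosanoids were called in both directions. Hpgds, the haematopoietic prostaglandin D synthase, read 63, 118 and 44.5 CPM in WT HFD and 5.35, 6.33 and 5.9 CPM in WT NCD (log2 fold change 3.68, SE 0.38, adjusted p = 0.0022). Ltc4s, which makes leukotriene C4, read 90.1, 74.5 and 86.6 CPM in WT HFD and 19.6, 36.3 and 25.2 CPM in WT NCD (log2 fold change 1.63, SE 0.23, adjusted p = 0.00489). Ptger3, the prostaglandin E receptor of adipocytes, read 57.8, 80 and 87.1 CPM in WT HFD and 17.6, 21.5 and 20.6 CPM in WT NCD (log2 fold change 1.91, SE 0.18, adjusted p = 0.00185). Ptgir, the prostacyclin receptor, read 12.3, 14 and 12.4 CPM in WT HFD and 3.99, 4.36 and 3.04 CPM in WT NCD (log2 fold change 1.76, SE 0.20, adjusted p = 0.00285). All 4 were higher in every WT HFD library. Ptgs1 and Ptgs2, the cyclooxygenases, were lower but are in the wider rule, and Hpgd, which inactivates prostaglandins, was lower too (-2.26, adjusted p = 0.0187, in 2 of 6 leave-one-out fits, not without WT HFD replicate 2). In all 8 were higher and 5 lower of 24. Members called higher became 5 without WT HFD replicate 1, 2 or 3, and those called lower 0 without WT HFD replicate 1 or 2, 2 without WT HFD replicate 3 and 3 without WT NCD replicate 2.

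Acute phase proteins rose in 6 of 17 tested and fell in 2. Orm1, an acid glycoprotein, read 251, 165 and 310.4 CPM in WT HFD and 63, 70.8 and 83.9 CPM in WT NCD (log2 fold change 1.74, SE 0.25, adjusted p = 0.00483). Serpina3n, a protease inhibitor, read 669, 519.8 and 680.4 CPM in WT HFD and 221, 299 and 297 CPM in WT NCD (log2 fold change 1.19, SE 0.18, adjusted p = 0.00599). Both belong to families of near copies (Orm2, Serpina3m), which also rose, and reads may be split among them. The falls were Serpina3k and Itih4, a count that was 0 without WT HFD replicate 1, 2 or 3 and 1 without WT NCD replicate 2. Of 17 cytochrome P450 genes 3 were higher and 5 lower. Cyp2e1, an oxidase abundant in liver and fat, read 433, 229 and 742 CPM in WT HFD and 2940.1, 4745 and 3279 CPM in WT NCD (log2 fold change -2.97, SE 0.46, adjusted p = 0.00609). Cyp2f2, known from lung, read 1.06, 0.229 and 0.671 CPM in WT HFD and 31.9, 51.2 and 18.9 CPM in WT NCD (log2 fold change -5.70, SE 0.64, adjusted p = 0.00267). Higher members numbered 1 without WT HFD replicate 1, and lower members 2 without WT HFD replicate 1 or 2, 3 without WT HFD replicate 3 or WT NCD replicate 2 and 8 with DESeq2.

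Stress genes had no common direction. Atf3, a factor induced by many stresses, read 73.7, 109 and 49.3 CPM in WT HFD and 4.74, 8.26 and 6.88 CPM in WT NCD (log2 fold change 3.54, SE 0.36, adjusted p = 0.00207). Ier5, a regulator of heat shock responses, read 25.8, 32.5 and 26.4 CPM in WT HFD and 13.5, 13.6 and 17.7 CPM in WT NCD (log2 fold change 0.92, SE 0.17, adjusted p = 0.0103). Of 24 immediate early genes 7 were higher and 2, Nr4a1 and Nr4a2, lower; the higher count was 2 without WT HFD replicate 1, 3 without WT HFD replicate 2, 4 without WT HFD replicate 3 or WT NCD replicate 3 and 3 in the fit of all 12 libraries, and the lower count was 0 without WT HFD replicate 1, 2 or 3 or WT NCD replicate 1 or 2, 4 without WT NCD replicate 3, 1 in the fit of all 12 libraries and 5 with DESeq2. Fosb (-0.08, adjusted p = 0.875), Egr1 (0.01, adjusted p = 0.976) and Jun (0.19, adjusted p = 0.379) did not pass. Of 15 heat shock proteins 4 were higher and 3 lower. Cryab, a small chaperone, read 169.6, 151 and 230.4 CPM in WT HFD and 52.2, 56.5 and 70.5 CPM in WT NCD (log2 fold change 1.62, SE 0.20, adjusted p = 0.00328). Hspa1a, the inducible Hsp70, read 3.78, 6.85 and 6.15 CPM in WT HFD and 38.3, 22 and 16.7 CPM in WT NCD (log2 fold change -2.20, SE 0.37, adjusted p = 0.00811); it has a near copy, Hspa1b. The higher members numbered 2 without WT HFD replicate 1 or 2. Those lower were 1 without WT HFD replicate 1 or 3. Of 34 genes of the unfolded protein response 6 were higher and 5 lower. Of the 5 falls, 4 lay outside the wider rule. Herpud1, which serves degradation at the endoplasmic reticulum, read 47.3, 45.8 and 44.9 CPM in WT HFD and 91.9, 77 and 72.1 CPM in WT NCD (log2 fold change -0.80, SE 0.12, adjusted p = 0.00536). Members higher in WT HFD were 0 without WT HFD replicate 1 or 2 and 2 without WT HFD replicate 3 or WT NCD replicate 2, and those lower 1 without WT HFD replicate 1, 2 without WT HFD replicate 2 and 3 without WT HFD replicate 3 or WT NCD replicate 2.

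The largest falls outside the wider rule were listed after the values were seen. Ripk4, a kinase of epithelial differentiation, read 0.303, 0 and 0.224 CPM in WT HFD and 22.4, 17 and 10.6 CPM in WT NCD (log2 fold change -6.55, SE 0.91, adjusted p = 0.00453). Dsg2, an epithelial cadherin of desmosomes, read 0.132, 0.688 and 0.578 CPM in WT HFD and 5.27, 7.05 and 14.7 CPM in WT NCD (log2 fold change -4.27, SE 0.71, adjusted p = 0.00778). Col17a1, which anchors epithelium to its base, read 0.435, 0.115 and 0.186 CPM in WT HFD and 2.39, 2.12 and 3.39 CPM in WT NCD (log2 fold change -3.41, SE 0.61, adjusted p = 0.00958). These 3 are known from epithelia, and the wider rule did not take them. Slc2a3, a high-affinity glucose transporter, read 3.99, 3.67 and 4.62 CPM in WT HFD and 54.1, 65.7 and 46.1 CPM in WT NCD (log2 fold change -3.75, SE 0.19, adjusted p = 0.000899). Dennd2d, an exchange factor for Rab proteins, read 4.24, 3.86 and 5.37 CPM in WT HFD and 54.5, 78.6 and 55.5 CPM in WT NCD (log2 fold change -3.81, SE 0.22, adjusted p = 0.0011). Acsm3, a mitochondrial medium-chain acyl-CoA synthetase, read 0.643, 1.49 and 0.987 CPM in WT HFD and 31, 71.1 and 24 CPM in WT NCD (log2 fold change -5.33, SE 0.56, adjusted p = 0.00227). Nt5e, which makes adenosine at the cell surface, read 2.34, 2.18 and 4.81 CPM in WT HFD and 51, 21.4 and 30.3 CPM in WT NCD (log2 fold change -3.46, SE 0.46, adjusted p = 0.00397). No library of WT HFD reached the lowest WT NCD library in any of these 7. In MKO the log2 fold change of HFD over NCD was -3.19, SE 0.86, adjusted p = 0.0935 for Ripk4, -2.19, SE 0.29, adjusted p = 0.00616 for Slc2a3, -2.77, SE 0.33, adjusted p = 0.00378 for Dennd2d and -2.90, SE 0.71, adjusted p = 0.0665 for Acsm3.

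The same diet contrast in MKO fat shares no library with that in WT. In a fit of all 12 libraries 212 genes (1.04%) were higher and 196 (0.966%) lower there, and MKO NCD replicate 2 had no count for 57.3% of the table's genes. Bnip3 stood, on the scale of all 12 libraries, at 446, 415 and 476 CPM in MKO HFD and 547, 811 and 563 CPM in MKO NCD, and whole-tissue counts do not check a deletion in macrophages. The difference of the diet effect, WT minus MKO, passed the test in 53 genes (0.261%), 29 higher (0.143%) and 24 lower (0.118%). Without MKO NCD replicate 2 the difference passed in 0.884%, with 102 higher (0.472%) and 89 lower (0.412%). Apobec1, an RNA-editing enzyme of macrophages and gut, read 126, 171 and 183 CPM in WT HFD and 14.3, 19.6 and 17.7 CPM in WT NCD, and its diet effect was larger in WT (difference 2.81, SE 0.31, adjusted p = 0.00983). Lmo2, a factor of blood and endothelium, read 49.8, 60.6 and 51.2 CPM in WT HFD and 15.4, 14.5 and 14.4 CPM in WT NCD (difference 1.73, SE 0.19, adjusted p = 0.00983). The difference was 2.17, SE 0.30, adjusted p = 0.0261 for Plin2, 1.85, SE 0.29, adjusted p = 0.0294 for Dhcr7 and 2.23, SE 0.36, adjusted p = 0.0408 for Sirpa, the inhibitory receptor that reads Cd47. The macrophage identity list as a whole had a median of 2.17 in WT and 0.35 in MKO, and cell division 1.85 in WT and 2.32 in MKO. The MKO medians come from the fit of all 12 libraries, which includes MKO NCD replicate 2. Medians without that library were not computed. Cell division had 14 higher members in WT in the fit of all 12 libraries and 45 in the fit of 11 without it. The difference of these medians between the genotypes was not tested.

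**Figure D5:**
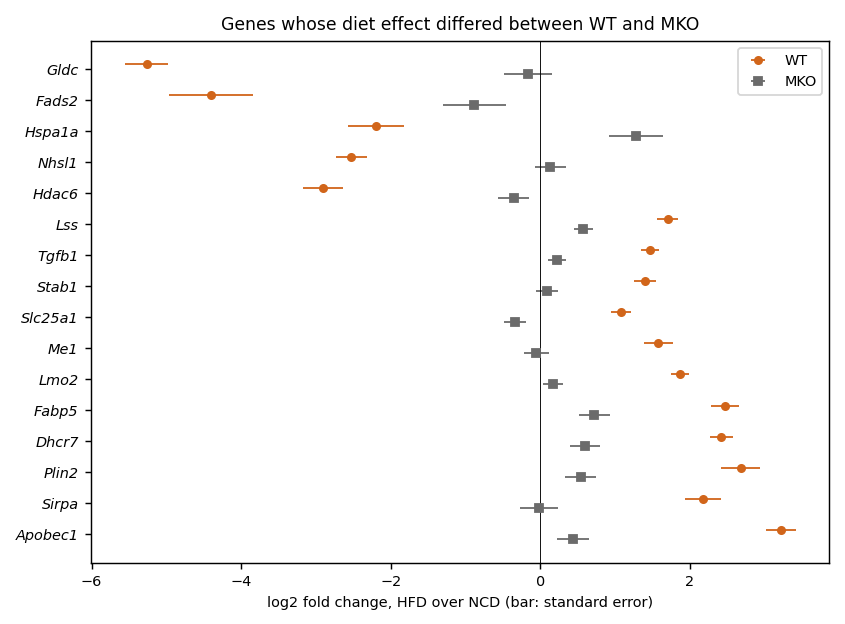
Log2 fold change of HFD over NCD, with bars of 1 SE, in WT and MKO fat for 16 genes whose diet effect differed between the genotypes. The WT values come from the fit of 6 libraries and the MKO values from the fit of 12. The 11 genes higher in WT lie closer to 0 in MKO, while Gldc, Nhsl1 and Fads2, which are set apart as carried by WT NCD, and Hdac6, which the wider rule takes, fell in WT.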

How the data were processed

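Bulk RNA of gonadal fat was sequenced from 12 mice in 4 groups of 3 with a stranded mRNA kit, per the labels' protocols. The submitters' processing notes name bcl2fastq 2.20.0, Trimmomatic, HISAT2 2.1.0, StringTie 1.3.4d, DESeq2 and mm10. The deposited table holds raw read counts per gene, which were tested here, and the authors' TPM, printed only to place genes per length.

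In R 4.3.3, edgeR 4.0.16 fitted the 6 WT libraries alone, with TMM size factors, filterByExpr by group (19183 of 32238 genes kept) and robust quasi-likelihood F tests. The SE is the absolute log2 fold change over the square root of F. The MKO diet effect and its difference from WT come from a fit of all 12 libraries. The labels call the replicates biological and say no more, so p-values weigh the group difference against the spread between these samples. Alternatives included DESeq2 1.42.0 and limma-voom (limma 3.58.1), other size factors, other filters and fits without 1 library. Depth was 52.9 to 72.7 M counts a library, and 3 replicates limit the precision. On simulated counts (18598 genes, 200 changed) the WT test recovered 24% of 2-fold and 79% of 4-fold changes and called 0.0489% of unchanged genes. The changed genes were drawn only from genes with higher counts. They were a far smaller share than the 27.2% called in the data, which makes the adjusted threshold stricter. These rates therefore do not give the recovery in the comparison itself.

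The comparison and the 70 gene lists were chosen with earlier results of these data known. Named genes are, per list, the 4 with the smallest p among called members that average at least 1 CPM, do not overlap between groups and pass every leave-one-out fit, with at most 2 against the list's majority, or else the 2 with the smallest p. The 15 largest rises, 5 falls among genes set apart, 5 differences between genotypes and a panel of known genes were added. Other members named were chosen after their values were seen, as were the wider rule and the falls outside it. Positions are from RefSeq on GRCm38 (mm10). Python 3.11.15 and matplotlib 3.10.9 drew the figures. Some members of the lists are counted but not reported by name here.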

Additional observations from a re-analysis of the deposited data

Results flagged for a closer look

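In 16 of the genes named, the diet effect differed between the genotypes by the test of the difference itself, WT minus MKO, in the edgeR fit of all 12 libraries with Benjamini-Hochberg adjustment. Among genes higher in WT HFD the difference on the log2 scale was 2.81 for Apobec1, 2.23 for Sirpa, 2.17 for Plin2, 1.85 for Dhcr7, 1.78 for Fabp5, 1.73 for Lmo2, 1.66 for Me1, 1.45 for Slc25a1, 1.35 for Stab1, 1.27 for Tgfb1 and 1.16 for Lss. Me1 and Slc25a1 supply substrate for fatty acid synthesis, and Lss and Dhcr7 make sterols. Hspa1a, the inducible heat shock protein, fell in WT and had a difference of -3.45, with a log2 fold change of 1.28 in MKO. Gldc, the glycine decarboxylase, gave -5.07, Nhsl1 gave -2.63, Hdac6, a cytoplasmic deacetylase, gave -2.51 and Fads2, a desaturase, gave -3.49. Gldc, Nhsl1 and Fads2 are among the genes set apart as carried by the WT NCD libraries, and Hdac6 falls under the wider rule. MKO NCD replicate 2, which had no count for 57.3% of the table's genes, enters all 16 differences. Without it each of the 16 passed again in its direction, Gldc with -5.45, Apobec1 with 2.68 and Fads2 with -3.62 on the log2 scale.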

How the results depend on the processing

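The count of higher genes was between 1235 and 2366 over the fits that leave out 1 WT library, and that of lower genes between 915 and 2799. It was lowest in both directions without WT HFD replicate 1. DESeq2 called 4312 genes lower, and the fit of all 12 libraries called 1681. With other size factors, other filters, limma-voom, no robust spread or 11 libraries, both counts stayed within 1.5 times those reported, as did the higher count with DESeq2 or all 12 libraries. The set-apart rule took 552 genes with a fold of 2, 197 with a fold of 8 and 978 in its wider form, which was added after seeing the data, as was its removal before TMM (2514 higher and 2229 lower). The difference between genotypes was called in 102 genes higher and 89 lower without MKO NCD replicate 2. The cause of these shifts was not tested. The log2 fold change of Il1b, which was not called, lay between -0.73 and 0.28 over the fits that leave out 1 library and was positive without WT NCD replicate 2. That of Scd1, not called either, lay between -0.34 and 0.13, positive without WT HFD replicate 1 (0.05), WT HFD replicate 2 (0.13) or WT NCD replicate 3 (0.13). Among the genes chosen by the rule for named genes, no other turned its direction. For the other members named, changes of direction were not followed. In the edgeR fit of all 12 libraries, 29 of the genes chosen by that rule lost their call. Among them were Gatm (adjusted p = 0.373), Angptl8 (adjusted p = 0.148), Ccl7 (adjusted p = 0.104) and Chil3 (adjusted p = 0.0986). Over the gene lists, 24 counts moved by over 1.5 times in the fit of all 12 libraries, 24 with DESeq2, 19 in the fit of 11 libraries, 15 with no count filter, 13 with limma-voom and 34 with the replicate block.

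Replicate numbers share no stated litter or day. Deviations of same-numbered libraries correlated at -0.0796, 0.106 and 0.0679, and those of differently numbered ones at -0.172 to 0.0808. Such correlations over 3 libraries a group cannot settle whether the numbers pair the samples, and the main fit used no pairing. A fit with the replicate block called 1799 genes higher and 1618 lower. Depth is 52.9 M counts or more, and genes under 1 CPM are the least precise.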
